A study of Mus musculus with 18 samples.

Results

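Cells of the FDH line with the wild-type IL-3 receptor were compared between 5 days in IL-3 and growth without it. All 3 libraries labelled wild type, day 5 and all 3 labelled wild type, untreated were taken, 6 of the 18 libraries of the series. The wild-type day 2 libraries were used to place genes in time, and the untreated and day 5 libraries of a line with the receptor variant P248L served in the text only to test whether a response differed, while all 18 libraries set the filter on low counts and the estimate of spread. FDH cells are immortalised BALB/c mouse fetal liver cells of stage E14.5, studied at passages 10 to 12. They came from mice that lack βc and βIL-3 (the labels write bc-/- bIL-3-/-). All lines were transduced with βc, and the wild-type line also with wild-type IL3Rα. Day 5 cells were washed and plated in serum medium with 100 ng/ml IL-3 for 5 days. Untreated cells grew in serum medium with doxycycline and 100 ng/ml mouse SCF. The IL-3 medium as described lists neither doxycycline nor SCF, so the gain of IL-3 and the loss of both cannot be told apart. Each receptor is represented by 1 line. The labels do not say that the 3 libraries of a group came from separate cultures, so p-values measure only the spread between these samples, which may be technical.

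IL-3 is a cytokine of activated lymphocytes that lets early blood-forming cells survive, divide and mature into several kinds of myeloid cell. Its receptor joins IL3Rα, which binds IL-3, to the signalling chain βc, which GM-CSF and IL-5 receptors share. The pair activates JAK2, STAT5 and the RAS/MAPK and PI3K pathways. SCF, the ligand of the receptor tyrosine kinase Kit, keeps such cells in an immature, dividing state. A maturing neutrophil makes its granule proteins in waves, the primary granule proteins first and the secondary and tertiary ones later, whereas a macrophage builds up lysosomes, pattern receptors and receptors for debris.

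Reads in genes numbered 19384858, 20671536 and 17257318 at day 5 and 17264435, 22627414 and 19621168 in untreated cells, and 11942 of 23329 genes passed the filter on low counts. Only such genes are counted as tested. A gene near 0 untreated passes the filter only through groups where it is higher, so it can hardly be called lower at day 5. Levels are reads per 1e6 after TMM scaling (CPM) and are given for libraries 1, 2 and 3 or as the mean ± SD of n = 3. A log2 fold change is day 5 over untreated, with its standard error. A gene rose or fell where the edgeR quasi-likelihood test gave a Benjamini-Hochberg adjusted p under 0.05. A group without any read was set to 3 reads in all, which makes the fold a lower bound. Against a group of 1 to 3 reads the ratio is printed with a 95% counting interval. Bounds and intervals cover counting error only. In bulk RNA, fewer cells of a type and less RNA per cell cannot be told apart.

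The change was large. In all, 8729 genes passed (73.1% of those tested), 4268 higher (35.7%) and 4461 lower (37.4%), and these shares stand beside every count below. The gene lists were chosen with earlier results of these data known. A list's count thus describes its members and is no test of the list against these shares. The median log2 fold change of all tested genes was -0.05, and it shifted by 0.12 with DESeq2 size factors and by -0.44 with no composition scaling, under which 34.4% of changed genes rose in place of 48.9%. List medians shifted alike, so counts of lists with a median near 0 depend on the scaling, also where this is not restated. Fitted rises reached further than fitted falls. Past the threshold, 2989 genes rose by more than 2-fold (25%) and 2703 fell by as much (22.6%). By more than 4-fold 1843 rose (15.4%) and 1055 fell (8.83%), and by more than 16-fold 944 rose (7.9%) and 152 fell (1.27%). By more than 64-fold 565 rose (4.73%) and 46 fell (0.385%), and by more than 256-fold 289 rose (2.42%) and 15 fell (0.126%). The libraries of the groups did not overlap for 9939 genes (83.2%), 4828 above (40.4%) and 5111 below (42.8%). These shares stand beside every statement of no overlap below. Genes named for the largest rises, falls, gains or losses were chosen among genes without overlap. At day 5 the 10 most abundant genes held 13.29 to 15.04% of reads, against 4.17 to 4.41% untreated.

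**Figure D1:**
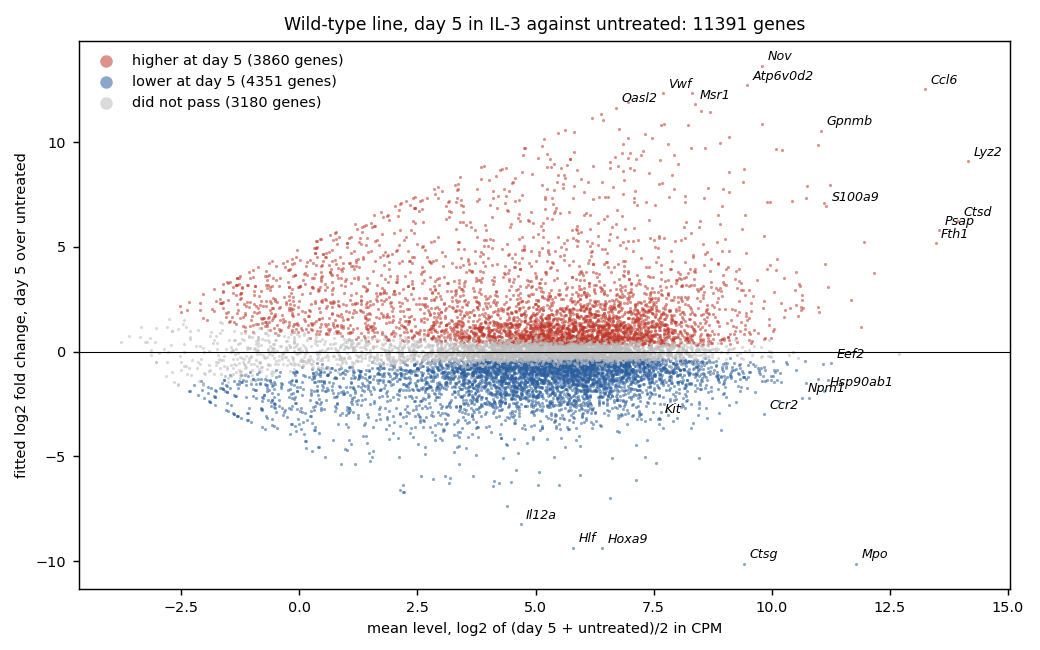
Fitted log2 fold change of day 5 over untreated wild-type cells (vertical axis) against mean level in log2 CPM (horizontal axis), 1 point per gene, red where a gene passed as higher, blue as lower and grey where it did not pass. Drawn are 11391 genes with more than 3 reads in both groups, and the rises of Lyz2, Ctsd, Psap and Fth1 stand at the right, at the highest levels, with the falls of Mpo and Ctsg far below 0.

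The largest gains of reads included Lyz2, Ctsd, Psap, both ferritin genes and Ccl6. Lyz2, lysozyme of macrophages and neutrophils (chromosome 10, 117277541 to 117282272 of GRCm38), reached 39883, 37339 and 31758 CPM at day 5, against 62.8, 80.6 and 55.2 CPM untreated (log2 fold change 9.10 ± 0.29, edgeR adjusted p = 2.1e-14). Its reads can be lost to or shared with its near-identical neighbour Lyz1, so its level is uncertain. Ctsd, the lysosomal aspartic protease cathepsin D, had 34585, 31014 and 27712 CPM at day 5, against 386, 455 and 405 CPM untreated (log2 fold change 6.23 ± 0.24). Psap, the precursor of the saposins that help to degrade sphingolipids, had 24822, 24086 and 21564 CPM at day 5, against 383, 449.8 and 433 CPM untreated (log2 fold change 5.80 ± 0.20). No library of the groups overlapped for these 3 genes, as the choice of genes by gain required, and the day 5 libraries lay close together. Fth1, the heavy chain of the iron store ferritin, had 23645, 22077 and 20549 CPM at day 5, against 586, 713 and 533 CPM untreated (log2 fold change 5.18 ± 0.29), and its light chain Ftl1 had 9273, 8329 and 7994 CPM at day 5, against 635, 678 and 560.3 CPM untreated (log2 fold change 3.77 ± 0.26). Both ferritin genes have processed pseudogenes, so their reads are uncertain. The chemokine Ccl6 had 19547, 17552 and 21098 CPM at day 5, against 2.74, 5.11 and 1.82 CPM untreated (log2 fold change 12.54 ± 0.52), and so was a trace untreated and among the most abundant transcripts at day 5. Gpnmb, a glycoprotein of lysosome-rich macrophages, had 4297, 4338 and 4064 CPM at day 5, against 1.54, 3.79 and 3.02 CPM untreated (log2 fold change 10.55 ± 0.61). Mpeg1, which encodes the pore-forming perforin-2 of macrophages, had 4259 ± 152 CPM at day 5 and 232 ± 31.98 CPM untreated (log2 fold change 4.20 ± 0.19). Slfn4, a Schlafen gene of myeloid cells from a family of close copies, had 2878, 3989 and 5288 CPM at day 5, against 4.92, 3.87 and 4.39 CPM untreated (log2 fold change 9.85 ± 0.36), and its day 5 libraries differed among themselves, library 3 being the highest. The adhesive glycoprotein Thbs1 (thrombospondin 1) had 4184 ± 779 CPM at day 5 and 487 ± 64.3 CPM untreated and the actin-binding peptide gene Tmsb4x 5511 ± 714 CPM at day 5 and 1007 ± 251 CPM untreated.

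Other rises began from no read at all. There were 43 genes with no read untreated and 10 CPM or more at day 5, and 1 gene the other way (Nrg2). Gja5, the gap junction protein connexin 40, had 124, 139 and 192 CPM at day 5, against no read in any untreated library (at least 3431-fold higher). Pdpn, podoplanin, a mucin-like ligand of CLEC-2, had 88.8, 99.9 and 148 CPM at day 5, against no read in any untreated library (at least 2528-fold higher). Ccbe1, a secreted factor of lymphatic growth, had 63.7, 72.9 and 72.3 CPM at day 5, against no read in any untreated library (at least 1589-fold higher). Ch25h, which makes 25-hydroxycholesterol, had 56.7, 55.7 and 82.1 CPM at day 5, against no read in any untreated library (at least 1461-fold higher). For these 4 genes every day 5 library held reads, and they varied less than those of the next pair. Car4, a carbonic anhydrase, had 37.04, 56.8 and 133 CPM at day 5, against no read in any untreated library (at least 1667-fold higher). Lpl, lipoprotein lipase, had 25.2, 38.1 and 134 CPM at day 5, against no read in any untreated library (at least 1432-fold higher). For these 2 genes library 3 stood well above libraries 1 and 2. The potassium channel Kcnn3 (63.1 CPM at day 5 and 0 CPM untreated), the signalling adaptor Bcar3 (60.1 CPM at day 5 and 0 CPM untreated), the repressor Bhlhe41 (57.4 CPM at day 5 and 0 CPM untreated), the ubiquitin ligase Rnf128 (51.1 CPM at day 5 and 0 CPM untreated), the regulator Mdfic (40.9 CPM at day 5 and 0 CPM untreated) and the homeobox gene Pknox2 (40.1 CPM at day 5 and 0 CPM untreated) likewise had no untreated read, and their lower bounds ran from 915-fold to 1441-fold. Nov, the matricellular protein CCN3, had 1633, 1641 and 2061 CPM at day 5, against 0.149, 0.193 and 0.0444 CPM untreated (log2 fold change 13.66 ± 0.38, edgeR adjusted p = 4.2e-15). Tarm1, an activating receptor of myeloid cells, had 259.6, 272 and 208 CPM at day 5, against 0, 0 and 0.0444 CPM untreated (17013-fold higher, counting interval 3053 to 672046).

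The genes that lost the most reads included primary granule genes, a chaperone and genes of protein synthesis, and those with the largest fold falls included a growth factor receptor and progenitor factors. Mpo, the myeloperoxidase that defines primary granules (chromosome 11, 87793784 to 87804412), had 6.88, 7.73 and 4.35 CPM at day 5, against 6748, 7654 and 6817 CPM untreated (log2 fold change -10.12 ± 0.36, edgeR adjusted p = 5.7e-14). Ctsg, the granule protease cathepsin G, had 1.64, 1.54 and 0.408 CPM at day 5, against 1305, 1415 and 1359.7 CPM untreated (log2 fold change -10.11 ± 0.36). Every day 5 library was below every untreated one for both, as the choice of genes required. Flt3, the receptor tyrosine kinase of early progenitors, had 0.122, 0 and 0 CPM at day 5, against 126, 130.3 and 142 CPM untreated (3236-fold lower, counting interval 896 to 26728). Nrg2, a neuregulin, had 0, 0 and 0 CPM at day 5, against 12.7, 10.7 and 14.8 CPM untreated (at least 205-fold lower). Hlf, a transcription factor of blood stem cells, had 0.244, 0.114 and 0.136 CPM at day 5, against 113, 116 and 105 CPM untreated (log2 fold change -9.35 ± 0.29), and the homeobox gene Hoxa9, which keeps progenitors immature, 0.244, 0.284 and 0.204 CPM at day 5, against 163, 117 and 229 CPM untreated (log2 fold change -9.39 ± 0.87). Untreated libraries differed more for Hoxa9 than for Hlf. Il12a, a subunit of IL-12, had 0.161 ± 0.0882 CPM at day 5 and 51.3 ± 8.35 CPM untreated (log2 fold change -8.24 ± 0.39). Hif3a, a hypoxia factor, had 0.241 ± 0.18 CPM at day 5 and 41.8 ± 8.66 CPM untreated (log2 fold change -7.37 ± 0.39). Eltd1, an adhesion receptor (now Adgrl4), had 1.51 ± 0.235 CPM at day 5 and 191 ± 13.1 CPM untreated (log2 fold change -6.98 ± 0.23). Mc5r, a melanocortin receptor, had 0.0379 CPM at day 5 and 15.5 CPM untreated (368-fold lower, counting interval 102 to 3045). The RNA-binding Mex3a (-6.42), the muscle protein gene Myom1 (-6.38), the inhibitory receptor Btla (-6.36) and the Notch target Nrarp (-6.26) were also among the largest falls, with log2 fold changes given in brackets.

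Genes of the receptors for IL-3 and its relatives were read next. Il3ra was low in both groups, at 10.5, 9.84 and 7.82 CPM at day 5, against 7.41, 11.2 and 7.36 CPM untreated, and did not pass (edgeR adjusted p = 0.75). Its reads may or may not hold the transduced gene, whose species is unstated. Csf2rb, which encodes βc, had 456, 429.5 and 427 CPM at day 5, against 92.1, 80.2 and 77.8 CPM untreated (log2 fold change 2.39 ± 0.16). Csf2rb2, which encodes βIL-3, had 667, 646 and 627 CPM at day 5, against 102, 104 and 91.4 CPM untreated (log2 fold change 2.71 ± 0.14). Both rose, but the pair is near identical and reads can be shared, so the split between them is uncertain and checks no genotype. Their reads, too, may or may not hold the transduced βc, whose species is unstated. The rises thus cannot be assigned to the cells' own genes. Csf2ra, the GM-CSF-binding chain, had 153, 173 and 193 CPM at day 5, against 8.25, 8.01 and 10.1 CPM untreated (log2 fold change 4.30 ± 0.18), whereas Il5ra, the IL-5-binding chain, fell, with 0.175 CPM at day 5 and 2.33 CPM untreated (log2 fold change -3.76 ± 0.49). Csf1r, the M-CSF receptor that macrophages depend on, had 229, 198 and 184 CPM at day 5, against 28.5, 32.2 and 35.6 CPM untreated (log2 fold change 2.66 ± 0.16), with no overlap of the groups. Csf3r, the G-CSF receptor of neutrophils, had 59.8, 75.2 and 52.6 CPM at day 5, against 38.7, 35.3 and 42.3 CPM untreated and rose less (log2 fold change 0.69 ± 0.20), a call that was lost with no composition scaling (log2 fold change 0.25, edgeR adjusted p = 0.3). Kit fell to 35.9, 43.6 and 36.4 CPM at day 5, against 374, 341 and 343 CPM untreated (log2 fold change -3.19 ± 0.21).

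Across 32 haematopoietic cytokine receptor genes, 21 of 28 tested members rose and 2 fell, with a median log2 fold change of 1.53. Il7r, the IL-7 receptor chain of lymphoid cells, had 204, 244 and 292 CPM at day 5, against 0, 0.116 and 0.0444 CPM untreated (log2 fold change 11.90 ± 0.30). Of the other T cell genes Cd28 had 276 ± 46.5 CPM at day 5 and 39.3 ± 4.52 CPM untreated, and none of the rest reached 3 CPM at day 5. Il1r2, a decoy receptor for IL-1, had 75.1 ± 9.86 CPM at day 5 and 0.17 ± 0.115 CPM untreated (log2 fold change 8.81 ± 0.31). Tnfrsf1b, a TNF receptor, had 777 ± 83.1 CPM at day 5 and 53.5 ± 0.761 CPM untreated (log2 fold change 3.86 ± 0.18). Those that did not pass included Ifnar2, a type I interferon receptor chain, with 149.6 ± 13.2 CPM at day 5 and 162 ± 6.96 CPM untreated (edgeR adjusted p = 0.39, and 1.7e-04 as lower with no composition scaling). Of the JAK and STAT genes, 7 of 11 rose and 2 fell, median 0.91 (against 5 higher and 4 lower and a median of 0.47 with no composition scaling). Rises were those of Stat2 (489 ± 48.6 CPM at day 5 and 55.3 ± 6.68 CPM untreated, log2 fold change 3.15 ± 0.13), which carries interferon signals, Jak1 (log2 fold change 1.78 ± 0.15) and Stat6 (log2 fold change 2.04 ± 0.11), among others. Stat5b did not pass, with 87.98 ± 6.52 CPM at day 5 and 84.8 ± 0.704 CPM untreated (edgeR adjusted p = 0.62, and 0.0028 as lower with no composition scaling). With DESeq2 it passed as higher (log2 fold change 0.18, DESeq2 adjusted p = 0.0447), so its direction depended on the setting. Among genes that JAK/STAT signals switch on to limit themselves, and the PIM kinases, 11 of 19 rose and 2 fell, median 0.65 (against 8 higher and 5 lower and a median of 0.21 with no composition scaling). Cish, a STAT5-induced inhibitor, had 189, 170.3 and 171 CPM at day 5, against 7.11, 6.19 and 6.88 CPM untreated (log2 fold change 4.72 ± 0.22). Pim1, a STAT5-induced survival kinase, had 309, 258 and 289 CPM at day 5, against 33.1, 27.6 and 37.3 CPM untreated (log2 fold change 3.13 ± 0.15). Socs1 (log2 fold change 5.47 ± 0.47) and Socs3 (log2 fold change 3.75 ± 0.19) rose as well, and Socs2 did not pass, with 41.9 ± 4.54 CPM at day 5 and 50.9 ± 5.47 CPM untreated (edgeR adjusted p = 0.22, and 0.001 as lower with no composition scaling).

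Markers of immature cells fell nearly throughout. Of the stem and progenitor list 2 of 20 tested members rose and 18 fell, with a median log2 fold change of -2.71. Cd34, a surface glycoprotein of progenitors, had 94.9, 75.5 and 68.9 CPM at day 5, against 697, 714 and 723 CPM untreated (log2 fold change -3.16 ± 0.14). Myb, a transcription factor needed for their growth, had 23.3, 22.9 and 14.9 CPM at day 5, against 702, 662 and 683 CPM untreated (log2 fold change -5.06 ± 0.20). Both were lower in every day 5 library. Falls were also seen for the transcription factors Sox4 (13.2 ± 2.83 CPM at day 5 and 154 ± 3.95 CPM untreated, log2 fold change -3.55 ± 0.29), Erg (log2 fold change -2.25 ± 0.27), Meis1 (log2 fold change -1.31 ± 0.14), Lmo2 (log2 fold change -1.39 ± 0.14), Ikzf2 (log2 fold change -2.05 ± 0.17) and Gfi1b (log2 fold change -3.79 ± 0.32), for the growth factor gene Angpt1 (14.1 ± 4.17 CPM at day 5 and 203 ± 12.5 CPM untreated, log2 fold change -3.84 ± 0.31) and for the RNA-binding Msi2 (log2 fold change -1.57 ± 0.17). Runx1, a regulator of blood formation (116 ± 8.14 CPM at day 5 and 62.6 ± 3.01 CPM untreated), and Mycn (5.62 ± 2.63 CPM at day 5 and 1.03 ± 0.521 CPM untreated) were the 2 members that rose. Hoxa7, Hoxa10, Mecom and Sox12 had no read in either group, and Hoxb8, whose forced expression blocks myeloid maturation, had no read in any of the 18 libraries. The list's summed level was 618 to 690.0 CPM at day 5 and 3522 to 3625 CPM untreated.

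Neutrophil granule genes split by wave. Of the 9 primary granule genes, 0 of 9 rose and 8 fell, median -4.44. Besides Mpo and Ctsg, Elane, neutrophil elastase, had 0.0609, 0.227 and 0.272 CPM at day 5, against 11.8, 11.6 and 11.6 CPM untreated (log2 fold change -5.93 ± 0.54). Prtn3, proteinase 3, had 12.6, 10.6 and 13.7 CPM at day 5, against 251, 299 and 252 CPM untreated (log2 fold change -4.44 ± 0.31). Ms4a3, a surface protein of granulocyte progenitors, had 7.49, 10.6 and 9.59 CPM at day 5, against 363, 378 and 358 CPM untreated (log2 fold change -5.31 ± 0.19). No library of the groups overlapped for these 3 genes. Srgn, the proteoglycan serglycin that granules of many cells hold, did not pass, with 718 ± 28.2 CPM at day 5 and 807 ± 41.8 CPM untreated (edgeR adjusted p = 0.49, and 0.0046 as lower with no composition scaling). All 17 genes in the secondary and tertiary granule list rose (15 with no composition scaling, and 16 with limma-voom or upper-quartile factors, which lost Chi3l3, at 0.79 CPM at day 5 and 0.35 CPM untreated), with a median log2 fold change of 7.601. The list is wider than granule proteins, since it also holds the receptor gene Ltb4r1 (log2 fold change 4.06) and the chemokine gene Ppbp (1.61). Mmp8, neutrophil collagenase, had 1259.9, 1490.0 and 1252 CPM at day 5, against 4.43, 4.91 and 5.32 CPM untreated (log2 fold change 8.09 ± 0.30). Ngp, the cystatin-like granule protein, had 795, 1294 and 1199 CPM at day 5, against 4.72, 6.89 and 5.23 CPM untreated (log2 fold change 7.60 ± 0.40). Ltf, lactoferrin, had 159, 239 and 231 CPM at day 5, against 1.64, 2.71 and 1.42 CPM untreated (log2 fold change 6.75 ± 0.28). Lcn2, an iron-scavenging lipocalin, had 180.4 ± 38.8 CPM at day 5 and 2.001 ± 0.337 CPM untreated (log2 fold change 6.48 ± 0.27). Olfm4, olfactomedin 4, had 447 ± 164 CPM at day 5 and 0.452 ± 0.011 CPM untreated (log2 fold change 9.93 ± 0.39). Cd177, a neutrophil surface protein, had 102 ± 23.4 CPM at day 5 and 0.197 ± 0.0883 CPM untreated (log2 fold change 8.92 ± 0.34). Mmp9, gelatinase B, had 106 ± 27.98 CPM at day 5 and 0.173 ± 0.0751 CPM untreated (log2 fold change 9.20 ± 0.34). The summed level of these 17 genes was 37576 to 44165 CPM at day 5 and 221 to 275 CPM untreated, and Lyz2 held most of it at day 5.

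Genes of mature neutrophils mostly rose. In that list 20 of 23 tested members rose and 3 fell, with a median log2 fold change of 3.06. S100a8 and S100a9, subunits of the calcium-binding protein calprotectin, had 3334, 3844 and 5944 CPM at day 5, against 25.9, 41.1 and 28.2 CPM untreated, and 3437, 4325 and 5839.7 CPM at day 5, against 29.3, 45.00 and 35.5 CPM untreated (log2 fold change 7.10 ± 0.40 and 6.95 ± 0.39). Library 3 was the highest of the day 5 libraries for both genes, and no library of the groups overlapped. Padi4, the enzyme that citrullinates histones when neutrophils cast out chromatin, had 183 ± 45.8 CPM at day 5 and 1.07 ± 0.312 CPM untreated (log2 fold change 7.39 ± 0.26). Fpr2, a formyl peptide receptor, had 129 ± 21.00 CPM at day 5 and 0.0424 ± 0.0392 CPM untreated (2915-fold higher, counting interval 997 to 14140.2). Stfa2l1, a stefin with close copies and thus uncertain, had 474 ± 98.6 CPM at day 5 and 1.32 ± 0.618 CPM untreated (log2 fold change 8.45 ± 0.34). The 3 members that fell were Lbr (log2 fold change -3.03 ± 0.16) and Lmnb1 (log2 fold change -3.46 ± 0.14), which belong to the nuclear envelope, and the enzyme gene Mgam (log2 fold change -3.65 ± 0.23). The chemokine receptor Cxcr2 rose, with 48.2 ± 5.17 CPM at day 5 and 14.4 ± 2.67 CPM untreated (log2 fold change 1.75 ± 0.18).

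Monocyte genes were divided: 13 of 19 rose and 5 fell, median 1.57. Ccr2, the receptor through which monocytes leave the marrow, fell to 165, 186 and 269 CPM at day 5, against 1619, 1524 and 1727 CPM untreated (log2 fold change -2.97 ± 0.29). The monocyte gene F13a1, for a chain of coagulation factor XIII, fell, with 99.99 ± 20.2 CPM at day 5 and 457 ± 23.6 CPM untreated (log2 fold change -2.19 ± 0.18). Plac8 had 67.8 ± 3.83 CPM at day 5 and 907 ± 128 CPM untreated (log2 fold change -3.74 ± 0.21). Cx3cr1, the fractalkine receptor, had 0.246 ± 0.0554 CPM at day 5 and 5.19 ± 1.17 CPM untreated (log2 fold change -4.37 ± 0.46). Rises were those of Ly6c2, a surface antigen of monocytes (418 ± 82.2 CPM at day 5 and 141 ± 19.5 CPM untreated, log2 fold change 1.57 ± 0.25), S100a4 (724 ± 21.9 CPM at day 5 and 20.4 ± 1.404 CPM untreated, log2 fold change 5.15 ± 0.22), Cd14, a receptor for bacterial lipopolysaccharide (204 ± 84.9 CPM at day 5 and 53.3 ± 7.695 CPM untreated, log2 fold change 1.94 ± 0.25), Zeb2 (log2 fold change 1.90 ± 0.19) and Klf4 (15.2 ± 4.57 CPM at day 5 and 0.0884 ± 0.0783 CPM untreated, log2 fold change 7.34 ± 0.44). Irf8, a transcription factor of monocytes and dendritic cells, did not pass, with 78.8 ± 5.77 CPM at day 5 and 80.9 ± 7.08 CPM untreated (edgeR adjusted p = 0.86, and 0.016 as lower with no composition scaling).

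Macrophage genes rose together. Of the 20 tested, 18 rose and 1 fell, with a median log2 fold change of 6.61. Msr1, a scavenger receptor for modified lipoproteins, had 608, 619.6 and 755 CPM at day 5, against 0.149, 0.116 and 0.266 CPM untreated (log2 fold change 11.83 ± 0.27, edgeR adjusted p = 1.1e-15). Mrc1, the mannose receptor, had 544, 496 and 414 CPM at day 5, against 0.547, 0.89 and 0.71 CPM untreated (log2 fold change 9.37 ± 0.39). Trem2, a lipid-sensing receptor, had 293, 274 and 249.7 CPM at day 5, against 0.895, 1.74 and 1.29 CPM untreated (log2 fold change 7.67 ± 0.29). Each of the 3 was below 2 CPM in every untreated library. Cd68, a glycoprotein of macrophage lysosomes, had 927 ± 94.7 CPM at day 5 and 9.96 ± 0.8 CPM untreated (log2 fold change 6.54 ± 0.23). Emr1, the F4/80 antigen (now Adgre1), had 795 ± 35.6 CPM at day 5 and 132 ± 3.84 CPM untreated (log2 fold change 2.59 ± 0.13). Lgals3, galectin 3, had 596 ± 127 CPM at day 5 and 0.321 ± 0.124 CPM untreated (log2 fold change 10.83 ± 0.30). Cd9, a tetraspanin, had 396 ± 21.4 CPM at day 5 and 0.669 ± 0.225 CPM untreated (log2 fold change 9.17 ± 0.37). Fabp5, a fatty acid binding protein, had 882 ± 181 CPM at day 5 and 49.2 ± 4.24 CPM untreated (log2 fold change 4.17 ± 0.17). Maf, a macrophage transcription factor, had 104 ± 42.1 CPM at day 5 and 0.996 ± 0.174 CPM untreated (log2 fold change 6.68 ± 0.37). Siglec1, a sialic acid receptor, had 94.1 ± 12.9 CPM at day 5 and 0.0258 ± 0.0447 CPM untreated (3248-fold higher, counting interval 899 to 26831). Apoe, apolipoprotein E, was the member that fell, with 2.64 ± 0.8 CPM at day 5 and 9.91 ± 1.905 CPM untreated (log2 fold change -1.91 ± 0.35). Siglec5 (now Siglecf) did not pass, with 16.02 ± 2.09 CPM at day 5 and 13.6 ± 1.16 CPM untreated (edgeR adjusted p = 0.2). Several genes of resident tissue macrophages were at or near 0 at day 5: Marco, C1qa, C1qb and Vsig4 stood below 1 CPM in every library, C1qc averaged 0.895 CPM at day 5 and 0 CPM untreated, and Cd163, Timd4, Cd5l and Spic had no read.

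Of the osteoclast list 7 of 8 tested members rose. Atp6v0d2, a proton pump subunit needed for cell fusion (chromosome 4, 19876838 to 19922566), had 1447, 1326 and 1493 CPM at day 5, against 0.298, 0.193 and 0.133 CPM untreated (log2 fold change 12.72 ± 0.42, edgeR adjusted p = 2.8e-14). Ctsk, the bone-degrading cathepsin K, had 33.1, 44.1 and 58.03 CPM at day 5, against 0.0497, 0.116 and 0.311 CPM untreated (log2 fold change 8.08 ± 0.39). Mitf, a transcription factor of osteoclasts and lysosomes, had 80.1 ± 14.3 CPM at day 5 and 11.8 ± 0.692 CPM untreated (log2 fold change 2.76 ± 0.19). Defining osteoclast genes were not found at level: Acp5, Dcstamp, Ocstamp and Calcr stood below 1 CPM at day 5, and Itgb3 did not pass, with 68.6 ± 6.08 CPM at day 5 and 84.5 ± 8.69 CPM untreated (edgeR adjusted p = 0.18, and 0.0061 as lower with no composition scaling).

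Markers of other cell types were read as whole lists, and their part in the results above was not tested. The B cell genes Ms4a1, Pax5, Cr2 and Blk and the T and NK cell genes Cd3e, Cd8a, Zap70, Ncr1 and Tbx21 had no read at day 5. Cd22, an inhibitory receptor, was the abundant exception in the B cell list, with 52.5 ± 1.796 CPM at day 5 and 0.0258 ± 0.0447 CPM untreated (1799.7-fold higher, counting interval 498 to 14868), and Gzmb, granzyme B, in the NK list, with 183, 111 and 45.7 CPM at day 5, against 1.64, 2.44 and 1.64 CPM untreated (log2 fold change 5.88 ± 0.40), where library 1 was the highest and library 3 the lowest at day 5. The summed levels were 57.3 to 60.3 CPM at day 5 and 0.497 to 1.32 CPM untreated for B cell genes, 508 to 558 CPM at day 5 and 42.8 to 51.8 CPM untreated for T cell genes, which Il7r and Cd28 dominate, and 56.1 to 191 CPM at day 5 and 1.86 to 2.98 CPM untreated for NK genes. Haemoglobin genes Hba-a1 and Hba-a2 had no read, and the erythroid list summed to 198 to 292 CPM at day 5 and 554 to 578 CPM untreated, nearly all of it Tfrc. Its other tested members rose from low levels, the beta haemoglobin gene Beta-s with 8.61 ± 11.1 CPM at day 5 and 0.153 ± 0.131 CPM untreated (log2 fold change 5.82 ± 1.08), the erythropoietin receptor gene Epor with 6.12 ± 0.715 CPM at day 5 and 0.151 ± 0.0649 CPM untreated (log2 fold change 5.32 ± 0.41) and Gata1 with 2.76 ± 0.665 CPM at day 5 and 0.513 ± 0.161 CPM untreated (log2 fold change 2.40 ± 0.35). The SD of Beta-s at day 5 exceeded its mean, so its rise rests on uneven libraries. The megakaryocyte list, at 545 to 666 CPM at day 5 and 267 to 316 CPM untreated, was led by Vwf, von Willebrand factor, with 454, 429 and 355 CPM at day 5, against 0, 0.155 and 0.0444 CPM untreated (log2 fold change 12.35 ± 0.50), whereas Gp9, Gp6, Gp5 and Gp1bb stood below 1 CPM at day 5. Mast cell genes summed to 2178 to 3175 CPM at day 5 and 629 to 819.8 CPM untreated, of which Cpa3, a carboxypeptidase, held most (2996, 2634 and 2026 CPM at day 5, against 578, 658 and 496 CPM untreated, log2 fold change 2.14 ± 0.20). Cma1, a chymase, rose (67.8 ± 11.3 CPM at day 5 and 2.196 ± 0.718 CPM untreated, log2 fold change 4.94 ± 0.29), but Tpsb2, Tpsab1, Mcpt4 and Fcer1a stood below 1 CPM. In the basophil list, at 1693 to 1968 CPM at day 5 and 281 to 354 CPM untreated, Cyp11a1, a steroid-forming enzyme, rose (244 ± 38.99 CPM at day 5 and 6.14 ± 1.41 CPM untreated, log2 fold change 5.31 ± 0.26) and Mcpt8, the defining protease, fell (1.38 ± 0.667 CPM at day 5 and 19.8 ± 2.93 CPM untreated, log2 fold change -3.81 ± 0.35).

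Eosinophil genes summed to 1746 to 1938 CPM at day 5 and 51.5 to 56.99 CPM untreated, nearly all of it Cd24a, and the granule gene Prg2 reached 16.2 ± 4.55 CPM at day 5 and 0.0277 ± 0.0241 CPM untreated (558-fold higher, counting interval 154 to 4613). The plasmacytoid dendritic cell list, at 959 to 1199.9 CPM at day 5 and 284 to 309 CPM untreated, was carried by the interferon-induced Irf7 and Bst2, and Siglech had 0, 0 and 0 CPM at day 5, against 3.38, 4.37 and 3.95 CPM untreated (at least 63.99-fold lower). Conventional dendritic cell genes summed to 106 to 116 CPM at day 5 and 132 to 147 CPM untreated, with Itgax, the integrin CD11c, at 90.5 ± 3.24 CPM at day 5 and 2.81 ± 0.323 CPM untreated (log2 fold change 5.01 ± 0.15) and with Zbtb46, Xcr1 and Ccr7 below 1 CPM. Hepatocyte genes came to 177 to 202 CPM at day 5 and 162 to 201 CPM untreated, nearly all of it Trf, and Alb, Ttr, Apob and Fga had no read. Endothelial genes came to 258 to 327 CPM at day 5 and 145 to 157 CPM untreated, nearly all of it Gja5, whose values are given above, and Pecam1, with 129 ± 2.88 CPM at day 5 and 146 ± 6.05 CPM untreated (edgeR adjusted p = 0.13, and 1.7e-04 as lower with no composition scaling). Cdh5, Tek, Tie1 and Emcn were below 1 CPM. Fibroblast genes came to 1974 to 2506 CPM at day 5 and 469 to 523 CPM untreated, nearly all of it Vim, an intermediate filament gene of many cell types (2164 ± 283 CPM at day 5 and 503 ± 30.2 CPM untreated), with Col1a1, Col1a2, Dcn and Lum below 1 CPM.

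**Figure D2:**
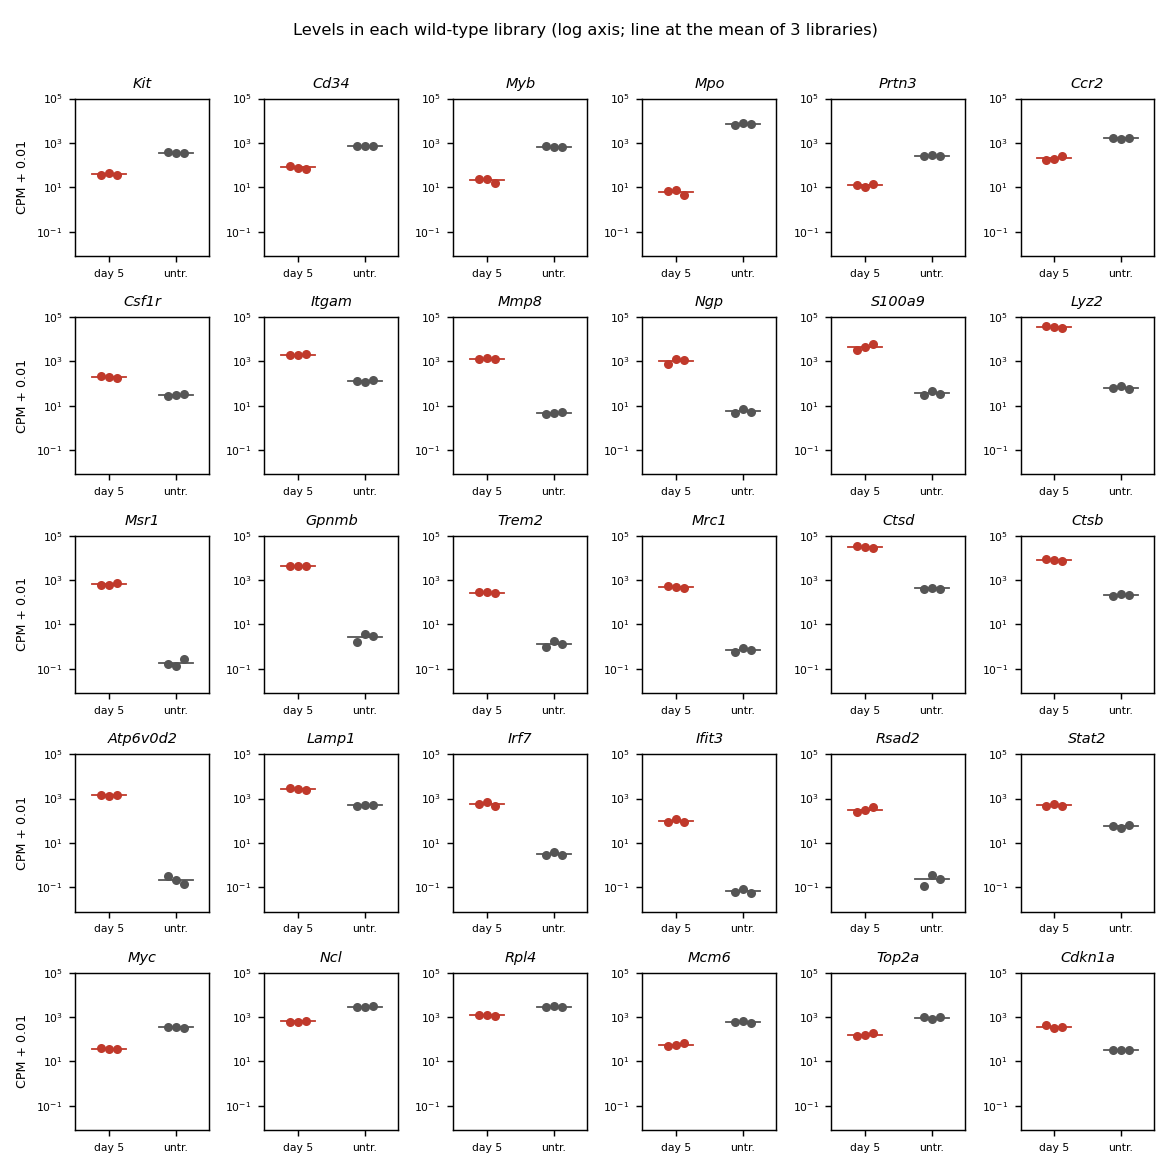
Level in each wild-type library for 30 genes named in the text, in CPM with 0.01 added, on a log axis. Red points are the 3 day 5 libraries and grey points the 3 untreated ones, and lines mark means. For each gene the red points lie wholly above or wholly below the grey ones, by little for Rpl4 and by several orders of magnitude for Mpo, Lyz2 and Msr1.

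Interferon-stimulated genes rose without exception. These genes are switched on when interferons reach their receptors and a complex with STAT2 and IRF9 binds the interferon-stimulated response element (ISRE) in their promoters. All 40 members rose, with a median log2 fold change of 5.82, and their summed level was 9272 to 10673 CPM at day 5 and 637 to 696 CPM untreated. Irf7, the transcription factor that amplifies the response, had 571, 672 and 472 CPM at day 5, against 2.83, 3.99 and 2.93 CPM untreated (log2 fold change 7.45 ± 0.33, edgeR adjusted p = 9.6e-13). Ifit2 and Ifit3, of a family that acts against viral RNA, had 525, 668 and 654 CPM at day 5, against 11.9, 11.6 and 12.5 CPM untreated, and 91.1, 114 and 88.8 CPM at day 5, against 0.0497, 0.0774 and 0.0444 CPM untreated (log2 fold change 5.68 ± 0.26 and 10.56 ± 0.37). Ifit3 has a near-identical copy, here I830012O16Rik (Ifit3b), which had 40.2, 51.8 and 42.4 CPM at day 5, against no read in any untreated library, so the split between the copies is uncertain. Rsad2, viperin, had 253, 307 and 394 CPM at day 5, against 0.0995, 0.348 and 0.222 CPM untreated (log2 fold change 10.38 ± 0.36). Oasl2, a 2'-5' oligoadenylate synthetase-like protein, had 196, 241 and 187 CPM at day 5, against 0, 0.155 and 0 CPM untreated (log2 fold change 11.66 ± 0.43). Rtp4 had 205 ± 6.28 CPM at day 5 and 0.317 ± 0.0625 CPM untreated. Mx2 had 47.1 ± 8.67 CPM at day 5 and 0.142 ± 0.0476 CPM untreated. Cmpk2, a mitochondrial nucleotide kinase, had 161 ± 16.6 CPM at day 5 and 0.979 ± 0.229 CPM untreated. Samd9l, a growth inhibitor, was the list's most abundant member at day 5, with 765 ± 83.6 CPM at day 5 and 75.8 ± 13.1 CPM untreated (log2 fold change 3.33 ± 0.36). None of the 3 day 5 libraries overlapped the untreated ones for any gene named here.

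Interferon-inducible GTPases, which attack the vacuoles of intracellular microbes, rose in 13 of 13 tested members, from 16 listed (median 3.97). Irgm1 had 369, 369 and 327 CPM at day 5, against 40.6, 40.8 and 41.3 CPM untreated (log2 fold change 3.12 ± 0.14). Gbp2 had 64.3, 76.6 and 69.4 CPM at day 5, against 0.845, 1.12 and 0.976 CPM untreated (log2 fold change 6.14 ± 0.20). Gbp7 had 262 ± 22.9 CPM at day 5 and 55.5 ± 4.92 CPM untreated (log2 fold change 2.24 ± 0.19). The family holds close copies, so single members are uncertain. Of the interferon genes themselves Ifnb1 had 0.305, 0.284 and 0.68 CPM at day 5, against no read in any untreated library. Ifna2 had 0, 0 and 0.136 CPM at day 5, against no read in any untreated library. The receptor genes Ifngr2 (log2 fold change 2.26 ± 0.12), Ifngr1 (log2 fold change 1.27 ± 0.12) and Ifnar1 (log2 fold change 0.74 ± 0.13, lost with no composition scaling) rose.

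Promoter windows of 2 interferon-stimulated genes are printed because the whole list moved together. Here and below, a printed window is the first of its gene that holds the letters searched for. Its match was thus set by that choice, and only the shares over all windows of a list describe the list. They run from 250 bases before to 50 after the start of the gene, from RefSeq on GRCm38.p6. The search was for the core of an ISRE, GAAA, 2 bases of any kind and GAAA, on both strands, and matches are in capitals. Ifit3 lies at chr19:34583279-34583578, plus strand, and holds 2 matches. Rsad2 lies at chr12:26456403-26456702, minus strand, and holds 1.
Ifit3: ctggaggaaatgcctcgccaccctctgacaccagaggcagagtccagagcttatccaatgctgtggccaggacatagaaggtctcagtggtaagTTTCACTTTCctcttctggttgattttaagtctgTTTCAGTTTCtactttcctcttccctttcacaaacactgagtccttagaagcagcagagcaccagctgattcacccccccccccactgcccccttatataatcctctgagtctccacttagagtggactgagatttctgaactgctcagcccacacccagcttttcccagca
Rsad2: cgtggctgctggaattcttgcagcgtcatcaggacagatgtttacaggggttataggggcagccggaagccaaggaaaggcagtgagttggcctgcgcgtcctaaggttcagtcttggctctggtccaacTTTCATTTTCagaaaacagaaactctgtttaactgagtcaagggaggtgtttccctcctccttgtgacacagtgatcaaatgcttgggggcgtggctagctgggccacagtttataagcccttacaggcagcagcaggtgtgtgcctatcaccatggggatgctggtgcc
The letters were found in 15 of the 35 windows of 29 list genes (42.9%), in 9 of 10 windows of the GTPases (90%) and in 3.44% of all 32851 windows. They were found in none of 39 windows of ribosome biogenesis genes and in 1 of 34 of lysosomal hydrolases. A match describes letters in a window and shows no binding.

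Every tested lysosomal gene rose, though with no composition scaling 36 of 38 hydrolases, 19 of 20 membrane proteins and 15 of 17 V-ATPase subunits did. Lysosomes degrade proteins, lipids and sugars at acid pH, which the V-ATPase proton pump sets, and transcription factors of the MITF and TFEB family bind the CLEAR element of many of their genes. All 38 hydrolases rose (median 2.35), as did all 20 tested membrane proteins (median 2.29) and all 17 tested V-ATPase subunits (median 1.93). The hydrolases, with their cofactor gene Psap, summed to 77660.1 to 91305 CPM at day 5 and 3922 to 4376 CPM untreated. Next to Ctsd, Ctsb, the cysteine protease cathepsin B, had 8439, 7584 and 7169 CPM at day 5, against 185, 232 and 204 CPM untreated (log2 fold change 5.22 ± 0.17). Lgmn, an asparagine-specific protease, had 224, 219.8 and 257 CPM at day 5, against 0.547, 0.89 and 0.887 CPM untreated (log2 fold change 8.21 ± 0.25). Ctss, cathepsin S, had 4762 ± 488 CPM at day 5 and 19.3 ± 1.78 CPM untreated (log2 fold change 7.94 ± 0.31). Lamp1, the main glycoprotein of the lysosomal membrane, had 2868, 2771 and 2523 CPM at day 5, against 454, 513 and 495 CPM untreated (log2 fold change 2.48 ± 0.11). Npc2, which carries cholesterol out of lysosomes, had 1536 ± 128 CPM at day 5 and 291 ± 57.4 CPM untreated (log2 fold change 2.40 ± 0.15). Slc11a1, which pumps iron and manganese out of phagosomes, had 82.5 ± 2.95 CPM at day 5 and 0.629 ± 0.447 CPM untreated (log2 fold change 7.07 ± 0.29). In the proton pump, Atp6v0a1 had 1012 ± 39.7 CPM at day 5 and 60.5 ± 6.09 CPM untreated (log2 fold change 4.06 ± 0.15). Atp6v1a had 956 ± 18.97 CPM at day 5 and 242 ± 12.2 CPM untreated (log2 fold change 1.98 ± 0.15). The changes of hydrolases that passed with more than 3 reads in both groups ran from 0.58 (Manba) to 8.21 (Lgmn) on the log2 scale.

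One promoter is shown for this group, that of Ctsd (chr7:142387778-142388077, minus strand), with the letters TCACGTGA, the core of a CLEAR element, in capitals.
Ctsd: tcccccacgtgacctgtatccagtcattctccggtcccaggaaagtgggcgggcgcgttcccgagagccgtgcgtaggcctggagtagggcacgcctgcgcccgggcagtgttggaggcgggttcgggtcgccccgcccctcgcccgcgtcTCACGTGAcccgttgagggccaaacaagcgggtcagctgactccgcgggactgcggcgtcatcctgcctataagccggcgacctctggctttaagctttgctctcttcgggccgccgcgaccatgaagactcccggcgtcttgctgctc
These letters are their own reverse complement and hold the E-box CACGTG within them. They were found in 3 of 34 windows of hydrolases (8.82%), 3 of 20 of membrane proteins (15%), 3 of 16 of V-ATPase subunits (18.8%) and 0.974% of all windows. Most windows of these lists lacked them.

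Autophagy genes moved less: 17 of 24 rose and 2 fell, median 0.73 (against 10 higher and 3 lower and a median of 0.29 with no composition scaling). Sqstm1, the cargo receptor p62, had 711 ± 14.8 CPM at day 5 and 163 ± 11.3 CPM untreated (log2 fold change 2.13 ± 0.13). Gabarap, a protein of the forming autophagosome, had 698 ± 74.5 CPM at day 5 and 149.5 ± 15.6 CPM untreated (log2 fold change 2.22 ± 0.25). Of the genes around mTORC1, the kinase that senses amino acids at the lysosome, 12 of 28 rose and 1 fell, median 0.35 (against 10 higher and 9 lower and a median of -0.09 with no composition scaling). The rises were uneven: Rragd, a Rag GTPase, had 68.96, 52.7 and 42.3 CPM at day 5, against 0.0497, 0 and 0.133 CPM untreated (log2 fold change 9.72 ± 0.50). Rragc had 858 ± 16.6 CPM at day 5 and 103 ± 2.19 CPM untreated (log2 fold change 3.06 ± 0.11). Fnip2, a partner of folliculin, had 808 ± 99.6 CPM at day 5 and 38.2 ± 3.84 CPM untreated (log2 fold change 4.40 ± 0.17). Mtor and Rheb did not pass. Mtor had 67.2 ± 0.622 CPM at day 5 and 78.2 ± 6.88 CPM untreated (edgeR adjusted p = 0.21, and 0.004 as lower with no composition scaling), and Rheb had 95.03 ± 3.99 CPM at day 5 and 95.9 ± 5.14 CPM untreated (edgeR adjusted p = 0.94, and 0.0015 as lower with no composition scaling).

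Receptors with which phagocytes sense microbes and debris rose in most families. Of the Toll-like receptors and their adaptors 18 of 21 rose and 1 fell, median 2.49. Those of the endosome were prominent: Tlr7, which binds single-stranded RNA, had 364, 387 and 372 CPM at day 5, against 10.8, 10.6 and 14.8 CPM untreated (log2 fold change 4.95 ± 0.25). Tlr13, which binds bacterial ribosomal RNA, had 513, 545 and 621 CPM at day 5, against 8.404, 9.44 and 9.36 CPM untreated (log2 fold change 5.95 ± 0.30), and their carrier Unc93b1 389.7 ± 26.9 CPM at day 5 and 45.7 ± 4.45 CPM untreated (log2 fold change 3.09 ± 0.20). C-type lectin receptors, which bind fungal and other sugars, rose in 13 and fell in 2 of 16 tested genes (median 4.55). Among them Clec7a, Dectin-1, had 1083, 995 and 961 CPM at day 5, against 18.3, 24.5 and 29.3 CPM untreated (log2 fold change 5.40 ± 0.28). Clec4n, Dectin-2, had 988, 971 and 908 CPM at day 5, against 0.597, 1.04 and 1.198 CPM untreated (log2 fold change 9.95 ± 0.32). Fc receptors and their ITAM adaptors rose in 15 and fell in 1 of 16 tested genes (median 2.07). Fcgr1, the high-affinity IgG receptor, had 268 ± 7.34 CPM at day 5 and 1.903 ± 0.266 CPM untreated (log2 fold change 7.13 ± 0.20). The adaptor Tyrobp had 1346 ± 179 CPM at day 5 and 212 ± 25.9 CPM untreated (log2 fold change 2.67 ± 0.23). For scavenger and efferocytosis receptors, 13 of 15 rose and 0 fell, median 3.81. Lrp1, a receptor for many ligands, had 701 ± 54.7 CPM at day 5 and 9.18 ± 1.74 CPM untreated (log2 fold change 6.26 ± 0.27). Complement genes and receptors rose in 10 of 10 tested, from 21 listed, with the anaphylatoxin receptor C3ar1 at 520.0 ± 3.34 CPM at day 5 and 1.02 ± 0.418 CPM untreated (log2 fold change 8.96 ± 0.29) and the pathway's stabiliser properdin, Cfp, at 463 ± 67.8 CPM at day 5 and 87.3 ± 6.42 CPM untreated (log2 fold change 2.41 ± 0.25).

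Inhibitory and paired receptors, which set the activation threshold of myeloid cells, rose in 25 and fell in 2 of 28 tested genes (median 4.28). Lilrb4 and its near-identical neighbour Gp49a (now Lilr4b) had 3417 ± 259 CPM at day 5 and 14.02 ± 2.13 CPM untreated, and 1354 ± 171 CPM at day 5 and 3.23 ± 0.686 CPM untreated, with an uncertain split, and Sirpa, which reads the "don't eat me" protein CD47, had 2255 ± 113 CPM at day 5 and 196 ± 9.17 CPM untreated (log2 fold change 3.53 ± 0.12). All 7 tested subunits of the phagocyte NADPH oxidase, which makes superoxide, rose (median 1.22, with 5 of 7 past the threshold under no composition scaling): its catalytic subunit Cybb had 44.2, 50.1 and 62.05 CPM at day 5, against 0.149, 0.0774 and 0.177 CPM untreated (log2 fold change 8.56 ± 0.33). Cyba had 812 ± 73.01 CPM at day 5 and 97.9 ± 22.7 CPM untreated (log2 fold change 3.05 ± 0.32). Cytosolic sensors and inflammasome genes rose in 15 and fell in 3 of 20 tested genes (median 0.61, against 9 higher and 3 lower and a median of 0.17 with no composition scaling). The adaptor Pycard had 137 ± 15.5 CPM at day 5 and 32.98 ± 8.66 CPM untreated (log2 fold change 2.05 ± 0.29). MHC class I and antigen processing genes rose in 9 and fell in 3 of 17 tested genes (median 0.60, against 8 higher and 4 lower and a median of 0.17 with no composition scaling), and B2m, the light chain of class I molecules, had 3178, 2980.1 and 2155 CPM at day 5, against 270.2, 324 and 294 CPM untreated (log2 fold change 3.23 ± 0.22). Tapbp, which loads peptides, had 669 ± 53.3 CPM at day 5 and 91.4 ± 12.1 CPM untreated (log2 fold change 2.87 ± 0.16). MHC class II genes were low in spite of their counts (8 of 11 tested, from 14 listed, rose and 1 fell, median 4.12): Cd74, the invariant chain, had 42.01 ± 8.41 CPM at day 5 and 0.376 ± 0.0429 CPM untreated (log2 fold change 6.77 ± 0.23). H2-Aa had 5.52 ± 4.995 CPM at day 5 and 0.0148 ± 0.0256 CPM untreated (384-fold higher, counting interval 68.3 to 15221).

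Secreted products were largely on the rising side. Of the 20 chemokine ligand genes 15 were tested, and 14 rose and 0 fell, with a median log2 fold change of 5.27, or 4.53 with members at their bounds. Ccl9 had 3262 ± 209 CPM at day 5 and 748 ± 53.7 CPM untreated (log2 fold change 2.12 ± 0.16). Ccl3 had 631 ± 139 CPM at day 5 and 78.3 ± 24.8 CPM untreated (log2 fold change 3.01 ± 0.25), and the monocyte attractant Ccl2 131, 101 and 266 CPM at day 5, against 0, 0.116 and 0.0444 CPM untreated (log2 fold change 11.33 ± 0.68). Of the cytokines and growth factors 18 of 22 rose and 2 fell, median 4.85. Spp1, osteopontin, had 2771, 2828 and 4556 CPM at day 5, against 21.7, 22.4 and 19.6 CPM untreated (log2 fold change 7.32 ± 0.29). Csf1, the ligand of Csf1r, had 776, 762 and 724 CPM at day 5, against 4.67, 4.37 and 5.06 CPM untreated (log2 fold change 7.32 ± 0.25). Il1rn, the antagonist of IL-1, had 626, 722 and 951 CPM at day 5, against 0.746, 0.929 and 0.976 CPM untreated (log2 fold change 9.74 ± 0.30). The IL-1 genes themselves were lower, Il1a at 54.3 ± 17.4 CPM at day 5 and 0.0626 ± 0.0774 CPM untreated and Il1b at 8.04 ± 2.73 CPM at day 5 and 0.0589 ± 0.0522 CPM untreated. Tgfb1 did not pass, with 439.7 ± 67.8 CPM at day 5 and 356 ± 14.9 CPM untreated (edgeR adjusted p = 0.21). Matrix proteases and their inhibitors rose in 15 and fell in 1 of 17 tested genes (median 4.80). Timp2, an inhibitor, had 217 ± 38.3 CPM at day 5 and 0.129 ± 0.0766 CPM untreated (log2 fold change 10.63 ± 0.34). Adam8, a membrane protease, had 486 ± 30.7 CPM at day 5 and 12.7 ± 0.795 CPM untreated (log2 fold change 5.26 ± 0.20). Chemoattractant receptors rose in 19 and fell in 2 of 21 tested genes (median 4.06). Ccr1 had 827 ± 75.04 CPM at day 5 and 294 ± 9.63 CPM untreated (log2 fold change 1.49 ± 0.15), opposite in direction to Ccr2.

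Adhesion and shape genes were part of the change. Leukocyte integrins rose in 11 and fell in 4 of 16 tested genes (median 0.70, against 5 higher and 5 lower and a median of 0.26 with no composition scaling). Itgam and Itgb2, which together form the complement receptor CD11b/CD18, had 1864, 2014 and 2217 CPM at day 5, against 133, 122 and 148 CPM untreated, and 1706, 1838 and 1881 CPM at day 5, against 107, 113 and 127 CPM untreated (log2 fold change 3.92 ± 0.17 and 3.96 ± 0.16), while Itga4, which holds progenitors in the marrow, fell, with 289 ± 20.1 CPM at day 5 and 677 ± 198 CPM untreated (log2 fold change -1.23 ± 0.34). Of 29 actin and motility genes 21 rose and 1 fell (median 0.88), with Gsn, which severs actin filaments, at 571 ± 49.8 CPM at day 5 and 4.02 ± 1.05 CPM untreated (log2 fold change 7.14 ± 0.22), Capg at 766 ± 7.699 CPM at day 5 and 28.2 ± 4.46 CPM untreated (log2 fold change 4.76 ± 0.26) and Actb at 5263 ± 255 CPM at day 5 and 2357 ± 387 CPM untreated (log2 fold change 1.16 ± 0.27). Pfn1 and Cfl1 did not pass. Pfn1 had 535 ± 22.6 CPM at day 5 and 402 ± 70.1 CPM untreated (edgeR adjusted p = 0.19), and Cfl1 had 953 ± 67.9 CPM at day 5 and 808 ± 41.7 CPM untreated (edgeR adjusted p = 0.33).

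Transcription factor genes were counted by family. Immediate-early factors, which signals switch on without new protein, rose in 17 and fell in 0 of 19 tested genes (median 4.46). Egr1 had 369, 209 and 431 CPM at day 5, against 3.68, 3.06 and 6.08 CPM untreated (log2 fold change 6.30 ± 0.36). Egr2 had 79.7, 50.1 and 109 CPM at day 5, against 0, 0.232 and 0.133 CPM untreated (log2 fold change 9.18 ± 0.56). Bhlhe40 had 561 ± 14.96 CPM at day 5 and 12.8 ± 1.82 CPM untreated (log2 fold change 5.45 ± 0.15). Klf6 had 612 ± 110.4 CPM at day 5 and 41.9 ± 1.82 CPM untreated (log2 fold change 3.87 ± 0.23). Lineage factors rose in 22 and fell in 5 of 29 tested genes (median 1.29). Id2, an inhibitor of E proteins, had 857, 818 and 744 CPM at day 5, against 3.13, 4.53 and 3.15 CPM untreated (log2 fold change 7.80 ± 0.25). Nuclear receptors rose in 9 and fell in 5 of 17 tested genes (median 0.55, against 6 higher and 5 lower and a median of 0.12 with no composition scaling), led by Pparg, a lipid-sensing receptor of macrophages, with 71.5, 73.97 and 93.5 CPM at day 5, against 0, 0.0387 and 0 CPM untreated (5414-fold higher, counting interval 971 to 213885), and by its partner Rxra, with 81.7 ± 14.03 CPM at day 5 and 2.92 ± 0.146 CPM untreated (log2 fold change 4.80 ± 0.29). In the MYC network, Myc, the driver of growth genes, fell to 39.05, 35.9 and 37.4 CPM at day 5, against 359.5, 357 and 332 CPM untreated (log2 fold change -3.22 ± 0.21). Mxd1, its antagonist at shared E-boxes, had 265, 308 and 346 CPM at day 5, against 25.1, 24.7 and 25.5 CPM untreated (log2 fold change 3.61 ± 0.14). The 2 genes moved in opposite directions in every library, and Max, the partner of both, did not pass, with 113 ± 8.23 CPM at day 5 and 104 ± 2.89 CPM untreated (edgeR adjusted p = 0.48, and 0.02 as lower with no composition scaling). NF-kappaB pathway genes rose in 11 and fell in 2 of 18 tested genes (median 0.72, against 9 higher and 3 lower and a median of 0.28 with no composition scaling). The feedback inhibitor Nfkbia had 115 ± 24.8 CPM at day 5 and 19.2 ± 2.76 CPM untreated (log2 fold change 2.59 ± 0.28). Tnfaip3 had 44.2 ± 22.8 CPM at day 5 and 5.48 ± 0.665 CPM untreated (log2 fold change 3.01 ± 0.33). MAPK feedback genes rose in 7 and fell in 5 of 17 tested genes (median 0.09, against 7 higher and 7 lower and a median of -0.35 with no composition scaling): Dusp1 (log2 fold change 4.77 ± 0.37) and Ier3 (log2 fold change 3.58 ± 0.25) rose and Etv4 (log2 fold change -4.54 ± 0.37) fell. Most HOX and TALE homeobox genes were not expressed, since 8 of 28 passed the filter on low counts.

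Ribosome biogenesis factors fell without exception. They process ribosomal RNA in the nucleolus, and MYC is known to bind E-boxes in many of their promoters. All 40 ribosome biogenesis genes fell (median -1.88), and their summed level was 2736 to 2928 CPM at day 5 and 11282 to 11661 CPM untreated. Ncl, nucleolin, had 627, 615 and 649.6 CPM at day 5, against 2819, 2909 and 2999.6 CPM untreated (log2 fold change -2.21 ± 0.18, edgeR adjusted p = 3.8e-09). Npm1, nucleophosmin, had 605, 565 and 559.8 CPM at day 5, against 2560.2, 2690.4 and 2637 CPM untreated (log2 fold change -2.19 ± 0.18). Dkc1, the pseudouridine synthase dyskerin, fell the most, to 18.5, 15.7 and 15.9 CPM at day 5, against 294, 343 and 303 CPM untreated (log2 fold change -4.23 ± 0.20). Gar1 (log2 fold change -3.18 ± 0.16) and Nop58 (log2 fold change -3.17 ± 0.19), which act in small nucleolar ribonucleoproteins, followed. RNA polymerase I and III subunits rose in 1 and fell in 20 of 25 tested genes (median -1.08). Polr1b had 9.32 ± 0.823 CPM at day 5 and 70.7 ± 3.38 CPM untreated (log2 fold change -2.92 ± 0.20).

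Mybbp1a, a nucleolar member of this list (99.3 ± 8.18 CPM at day 5 and 495 ± 25.7 CPM untreated, log2 fold change -2.32 ± 0.13), is shown with its promoter (chr11:72441077-72441376, plus strand), the E-box letters CACGTG in capitals.
Mybbp1a: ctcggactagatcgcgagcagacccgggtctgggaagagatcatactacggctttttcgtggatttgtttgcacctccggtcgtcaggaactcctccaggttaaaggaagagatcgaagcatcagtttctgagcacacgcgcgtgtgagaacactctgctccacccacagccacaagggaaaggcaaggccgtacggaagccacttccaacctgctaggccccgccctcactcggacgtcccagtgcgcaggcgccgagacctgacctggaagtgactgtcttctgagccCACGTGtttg
The 6 letters, their own reverse complement, were found in 10 of 39 windows of ribosome biogenesis genes (25.6%), in none of 35 windows of interferon-stimulated genes and in 7.15% of all windows.

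The rest of the protein synthesis machinery moved the same way by less. Cytosolic ribosomal proteins rose in 0 and fell in 46 of 52 tested genes (median -1.05). Rpl4 had 1237, 1199 and 1099 CPM at day 5, against 2704, 3089 and 2866 CPM untreated (log2 fold change -1.29 ± 0.16). Rpl3 had 327 ± 15.1 CPM at day 5 and 1105 ± 167 CPM untreated (log2 fold change -1.76 ± 0.16), and many of these genes have pseudogenes that can take reads. Rplp1 did not pass, with 631 ± 80.5 CPM at day 5 and 984 ± 307 CPM untreated (edgeR adjusted p = 0.12, and 0.013 as lower with no composition scaling). Mitochondrial ribosomal proteins rose in 1 and fell in 39 of 50 tested genes (median -0.87). Translation factors rose in 0 and fell in 24 of 31 tested genes (median -0.80). Eef2 had 1983 ± 147 CPM at day 5 and 2889 ± 79.6 CPM untreated (log2 fold change -0.54 ± 0.19, lost without day 5 library 3, where the edgeR adjusted p = 0.056), while Eef1a1, the most abundant of them, did not pass, with 6295 ± 282 CPM at day 5 and 6905 ± 205 CPM untreated (edgeR adjusted p = 0.39, and 2.6e-04 as lower with no composition scaling). Aminoacyl-tRNA synthetases rose in 1 and fell in 17 of 20 tested genes (median -1.15). Vars had 39.1 ± 2.74 CPM at day 5 and 241 ± 13.2 CPM untreated (log2 fold change -2.63 ± 0.20). Cytosolic chaperones rose in 1 and fell in 18 of 22 tested genes (median -1.32). Hsp90ab1 had 959, 933 and 956 CPM at day 5, against 3325, 3571 and 3554 CPM untreated (log2 fold change -1.88 ± 0.16). The mitochondrial Hspd1 had 189 ± 13.2 CPM at day 5 and 855 ± 81.9 CPM untreated (log2 fold change -2.18 ± 0.18). Splicing factors rose in 0 and fell in 31 of 33 tested genes (median -1.46). Srsf1 had 307 ± 7.59 CPM at day 5 and 1004 ± 25.9 CPM untreated (log2 fold change -1.71 ± 0.16), and nuclear pore and lamina genes rose in 1 and fell in 22 of 28 tested genes (median -1.29). There Lmna, which stiffens the nucleus, rose to 86.4, 83.4 and 107 CPM at day 5, against 0.298, 0.271 and 0.0444 CPM untreated (log2 fold change 8.77 ± 0.35) while Lmnb1 fell. Proteasome subunits rose in 3 and fell in 22 of 31 tested genes (median -0.57), a smaller median, and endoplasmic reticulum chaperones rose in 6 and fell in 9 of 22 tested genes (median -0.12), where DESeq2 size factors gave a median of 0.01.

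Genes of the dividing cell fell as blocks. All 38 replication genes fell (median -2.57), as did 43 of 44 mitotic genes (median -2.37) and 29 of 31 DNA repair genes (median -2.304). Mcm6, a subunit of the replicative helicase, had 49.9, 54.9 and 65.7 CPM at day 5, against 586, 637 and 555 CPM untreated (log2 fold change -3.38 ± 0.14, edgeR adjusted p = 5.6e-13). Mcm7 had 29.9, 28.9 and 33.3 CPM at day 5, against 375, 413 and 358 CPM untreated (log2 fold change -3.64 ± 0.13). Top2a, which untangles sister chromosomes, had 142, 161 and 183 CPM at day 5, against 969.6, 849.5 and 1001 CPM untreated (log2 fold change -2.54 ± 0.21). Ccna2, cyclin A2, had 49.4, 56.2 and 62.7 CPM at day 5, against 295, 298 and 334 CPM untreated (log2 fold change -2.46 ± 0.13). Mki67, the proliferation antigen, fell less, with 434, 537 and 518 CPM at day 5, against 1048, 700.1 and 1169.8 CPM untreated (log2 fold change -0.97 ± 0.32). No library of the groups overlapped for these 5 genes. The largest falls among repair genes were those of Exo1 (log2 fold change -3.73 ± 0.14) and Chek1 (log2 fold change -3.53 ± 0.20).

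Promoters of 2 genes from these blocks are shown, that of Mcm6 (chr1:128359656-128359955, minus strand) with the E2F letters TTTGGCGC in capitals, and that of Top2a (chr11:99024140-99024439, minus strand) with the letters TTTGAA of a cell cycle homology region (CHR) in capitals.
Mcm6: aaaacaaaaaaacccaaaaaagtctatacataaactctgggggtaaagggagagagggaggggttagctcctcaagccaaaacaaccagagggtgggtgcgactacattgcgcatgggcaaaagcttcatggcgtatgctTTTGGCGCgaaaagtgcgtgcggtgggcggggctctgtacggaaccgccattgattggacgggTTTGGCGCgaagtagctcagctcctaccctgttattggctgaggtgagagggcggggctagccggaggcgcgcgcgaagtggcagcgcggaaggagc
Top2a: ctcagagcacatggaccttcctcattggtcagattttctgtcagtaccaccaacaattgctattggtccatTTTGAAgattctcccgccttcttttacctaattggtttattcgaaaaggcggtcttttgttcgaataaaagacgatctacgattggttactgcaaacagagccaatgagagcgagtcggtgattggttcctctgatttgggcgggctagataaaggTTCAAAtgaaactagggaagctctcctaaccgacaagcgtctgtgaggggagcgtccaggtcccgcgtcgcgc
Searched on both strands, TTTGGCGC was found in 7 of 39 windows of replication genes (17.9%) and 0.514% of all windows. A second E2F motif, TTTCCCGC, was found in 6 of 39 (15.4%) and 1.07%, and in 1 of 35 windows of interferon-stimulated genes. TTTGAA was found in 29 of 38 windows of mitotic genes (76.3%) and 17.9% of all windows.

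Cyclins and CDK inhibitors went both ways (14 of 29 rose and 12 fell, median -0.37). Cdk4, which drives entry into the cycle, fell, with 110.1 ± 3.88 CPM at day 5 and 471 ± 28.3 CPM untreated (log2 fold change -2.10 ± 0.17), while Cdkn1a, the inhibitor p21, had 437, 317 and 349 CPM at day 5, against 31.9, 34.1 and 33.2 CPM untreated (log2 fold change 3.47 ± 0.22). Cdkn2b, p15, had 13.5 ± 0.598 CPM at day 5 and 0.347 ± 0.0975 CPM untreated (log2 fold change 5.24 ± 0.30). Cdkn1c, p57, had 17.8 ± 6.01 CPM at day 5 and 0.162 ± 0.0336 CPM untreated (log2 fold change 6.74 ± 0.41). The antiproliferative Btg1 (log2 fold change 3.03 ± 0.19) and Btg2 (log2 fold change 4.47 ± 0.30) rose too. Chromatin enzymes rose in 4 and fell in 20 of 33 tested genes (median -0.62). Dnmt3b, a DNA methyltransferase, had 3.91 ± 0.506 CPM at day 5 and 71.4 ± 3.52 CPM untreated (log2 fold change -4.18 ± 0.15). Tet1, which oxidises methylcytosine, had 0.257 ± 0.17 CPM at day 5 and 17.98 ± 4.59 CPM untreated (log2 fold change -6.05 ± 0.48). The list of p53 targets, which also holds the p53 gene Trp53, rose in 13 and fell in 1 of 18 tested genes (median 1.48). The member that fell was Trp53 itself (log2 fold change -1.79). Gadd45g had 70.6 ± 17.1 CPM at day 5 and 0.072 ± 0.0933 CPM untreated (log2 fold change 9.80 ± 0.39). Mdm2 had 208 ± 21.3 CPM at day 5 and 75.2 ± 2.304 CPM untreated (log2 fold change 1.47 ± 0.14). The BCL2 family rose in 12 and fell in 2 of 17 tested genes (median 1.15): the survival genes Mcl1 (1226, 1243 and 1305 CPM at day 5, against 244, 259 and 263 CPM untreated, log2 fold change 2.30 ± 0.13) and Bcl2l1 (197 ± 4.96 CPM at day 5 and 24.9 ± 2.45 CPM untreated, log2 fold change 2.98 ± 0.17) rose. Bcl2a1b, one of several close copies and thus uncertain, had 147 ± 12.6 CPM at day 5 and 0.0573 ± 0.0685 CPM untreated (log2 fold change 11.15 ± 0.54), and the death inducer Pmaip1 did not pass, with 122 ± 15.7 CPM at day 5 and 117 ± 3.14 CPM untreated (edgeR adjusted p = 0.74, and 0.039 as lower with no composition scaling).

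**Figure D3:**
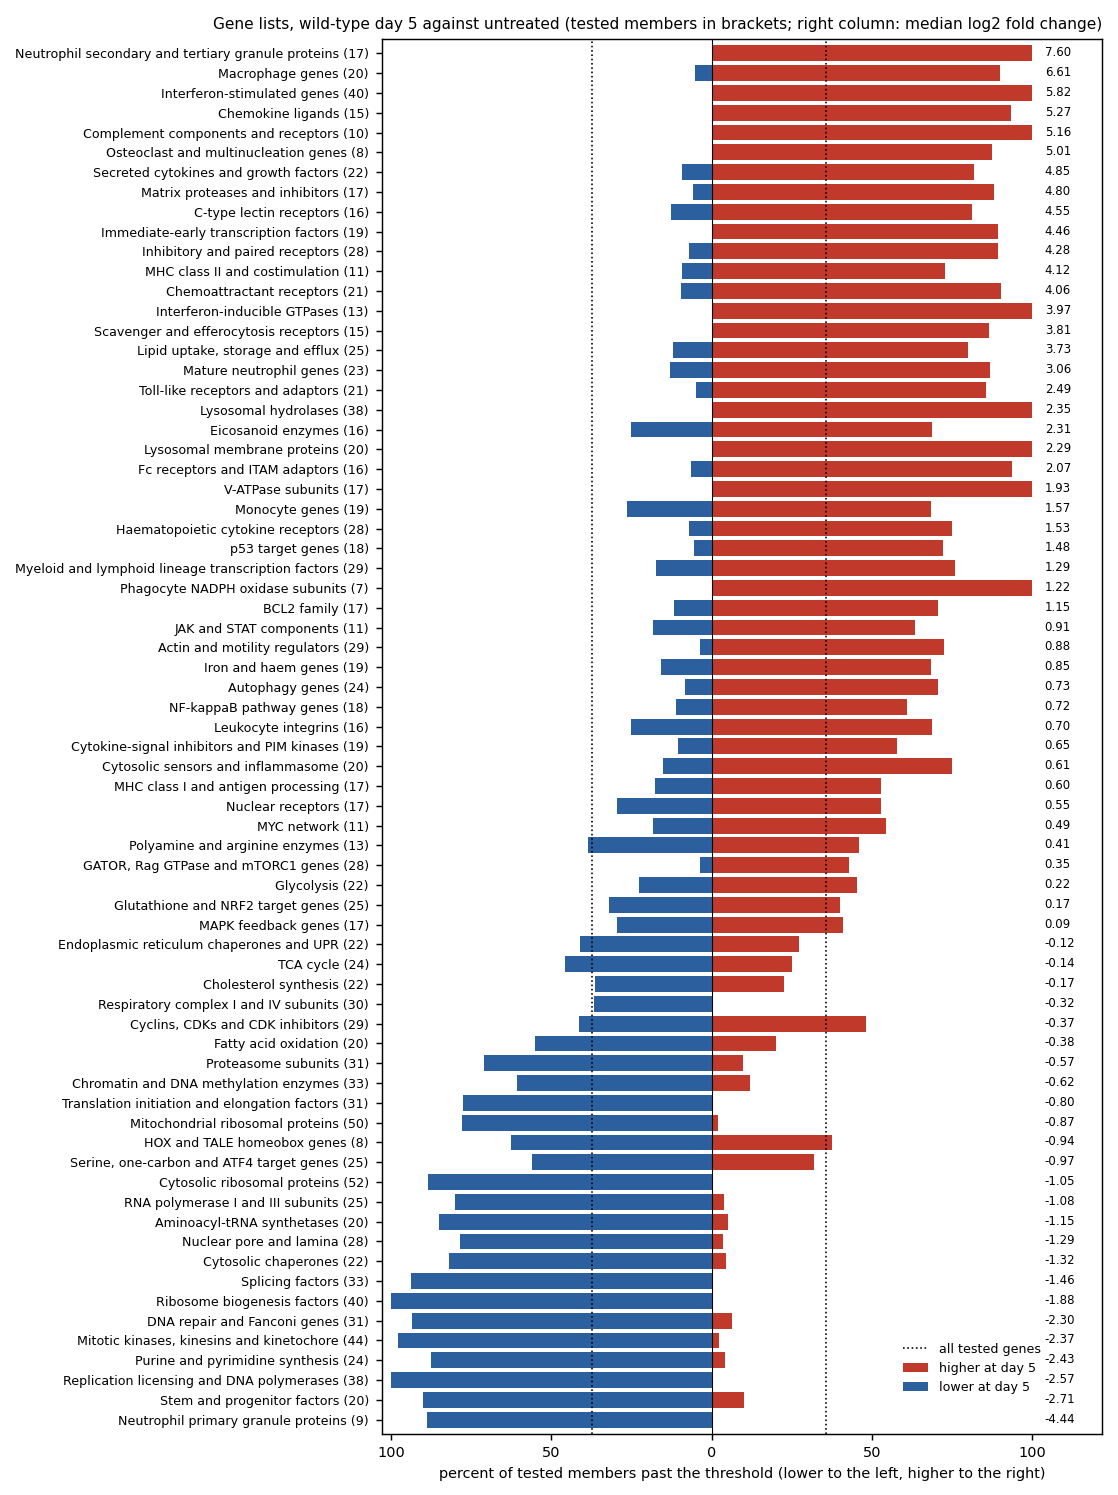
Share of tested members past the threshold in each list, in percent, higher at day 5 to the right (red) and lower to the left (blue), with lists ordered by the median log2 fold change printed at the right. Dotted lines mark the shares of all tested genes, 35.7% higher and 37.4% lower, and lists such as interferon-stimulated genes and ribosome biogenesis lie wholly on one side.

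Metabolic genes changed by pathway. Nucleotide synthesis fell: of the purine and pyrimidine genes 1 of 24 rose and 21 fell, median -2.43. Ctps, CTP synthase, had 9.87, 9.44 and 9.93 CPM at day 5, against 102, 105 and 97.5 CPM untreated (log2 fold change -3.38 ± 0.14). Impdh2, the first step towards GTP, had 37.6, 32.5 and 30.8 CPM at day 5, against 293, 365 and 270.3 CPM untreated (log2 fold change -3.20 ± 0.17). Cad, the first enzyme of pyrimidine synthesis, had 21.7 ± 2.71 CPM at day 5 and 192 ± 22.4 CPM untreated (log2 fold change -3.14 ± 0.20). Serine and one-carbon enzymes within the ATF4 list fell, Psat1 with 44.4 ± 7.45 CPM at day 5 and 436 ± 22.8 CPM untreated (log2 fold change -3.30 ± 0.14) and Shmt2 with 29.2 ± 3.297 CPM at day 5 and 291 ± 15.1 CPM untreated (log2 fold change -3.32 ± 0.25). The cystine carrier Slc7a11 rose (268 ± 41.7 CPM at day 5 and 24.8 ± 5.97 CPM untreated, log2 fold change 3.44 ± 0.29), and Atf4 did not pass, with 224 ± 23.5 CPM at day 5 and 232 ± 34.03 CPM untreated (edgeR adjusted p = 0.76, and 0.0032 as lower with no composition scaling). The list as a whole rose in 8 and fell in 14 of 25 tested genes (median -0.97). Respiratory complex I and IV subunits rose in 0 and fell in 11 of 30 tested genes (median -0.32, against 0 higher and 21 lower and a median of -0.76 with no composition scaling). The count of falls moved with the setting, to 7 without untreated library 2 or without day 5 library 2, 16 with the 6 compared libraries alone and 17 with the 9 wild-type ones. Cox4i1 did not pass, with 485 ± 21.4 CPM at day 5 and 483 ± 103 CPM untreated (edgeR adjusted p = 0.99). The mitochondrially encoded genes were not analysed here. TCA cycle genes rose in 6 and fell in 11 of 24 tested genes (median -0.14, against 2 higher and 15 lower and a median of -0.58 with no composition scaling). Irg1 (now Acod1), which makes itaconate, had 29.8, 45.5 and 52.4 CPM at day 5, against 0.398, 0.464 and 0.311 CPM untreated (log2 fold change 6.73 ± 0.38). Fh1, fumarate hydratase, had 46.2 ± 2.37 CPM at day 5 and 206 ± 17.2 CPM untreated (log2 fold change -2.16 ± 0.13). Glycolysis genes rose in 10 and fell in 5 of 22 tested genes (median 0.22, against 7 higher and 8 lower and a median of -0.22 with no composition scaling). The glucose carrier Slc2a3 had 115 ± 21.4 CPM at day 5 and 6.78 ± 1.13 CPM untreated (log2 fold change 4.08 ± 0.27), while Ldha and Pkm2 did not pass. Ldha had 699 ± 165 CPM at day 5 and 685 ± 83.2 CPM untreated (edgeR adjusted p = 0.89, and 0.032 as lower with no composition scaling), and Pkm2 had 796 ± 83.3 CPM at day 5 and 942 ± 47.6 CPM untreated (edgeR adjusted p = 0.19, and 0.0014 as lower with no composition scaling).

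Genes of lipid handling mostly rose, and those of cholesterol synthesis and fatty acid oxidation showed no common rise. Genes of lipid uptake, storage and efflux rose in 20 and fell in 3 of 25 tested genes (median 3.73). Plin2, which coats lipid droplets, had 1731, 1821 and 2089 CPM at day 5, against 93.8, 122 and 99.3 CPM untreated (log2 fold change 4.16 ± 0.16). Abcg1, a cholesterol exporter, had 934, 937 and 978 CPM at day 5, against 33.3, 31.4 and 35.6 CPM untreated (log2 fold change 4.83 ± 0.14). Soat1, which esterifies cholesterol, had 887 ± 62.2 CPM at day 5 and 47.7 ± 5.61 CPM untreated (log2 fold change 4.22 ± 0.13). Cholesterol synthesis rose in 5 and fell in 8 of 22 tested genes (median -0.17, against 2 higher and 13 lower and a median of -0.61 with no composition scaling). Hmgcs1 did not pass, with 209 ± 20.5 CPM at day 5 and 235 ± 23.3 CPM untreated (edgeR adjusted p = 0.33, and 0.0015 as lower with no composition scaling). Fatty acid oxidation rose in 4 and fell in 11 of 20 tested genes (median -0.38), where the peroxisomal Acox3 (log2 fold change 2.42 ± 0.14) rose. Eicosanoid enzymes rose in 11 and fell in 4 of 16 tested genes (median 2.31): Alox5ap, which leukotriene synthesis needs, had 477 ± 17.2 CPM at day 5 and 99.2 ± 11.2 CPM untreated (log2 fold change 2.27 ± 0.22). Ptgs1, cyclooxygenase 1, had 359 ± 45.1 CPM at day 5 and 74.6 ± 5.54 CPM untreated (log2 fold change 2.27 ± 0.16), and Hpgd, which inactivates prostaglandins, fell to 0.305, 0.625 and 0.816 CPM at day 5, against 40.4, 43.1 and 49.1 CPM untreated (log2 fold change -6.24 ± 0.32). Iron and haem genes rose in 13 and fell in 3 of 19 tested genes (median 0.85). Beside ferritin, Slc40a1, the iron exporter ferroportin, had 105, 100.5 and 87.8 CPM at day 5, against 0.249, 0.31 and 0.355 CPM untreated (log2 fold change 8.29 ± 0.21), and Tfrc, the transferrin receptor, fell, with 224 ± 35.1 CPM at day 5 and 564 ± 12.7 CPM untreated (log2 fold change -1.33 ± 0.22). Of the arginine enzymes, Arg2 had 213 ± 5.75 CPM at day 5 and 0.468 ± 0.189 CPM untreated (log2 fold change 8.85 ± 0.26). Arg1 had 3.23, 6.37 and 28.8 CPM at day 5, against no read in any untreated library (at least 276-fold higher), and Nos2 only 2.04 CPM at day 5 and 0 CPM untreated. Targets of NRF2 rose in 10 and fell in 8 of 25 tested genes (median 0.17, against 7 higher and 12 lower and a median of -0.27 with no composition scaling). The glutathione transferase Gstm1, from a family of close copies, had 945 ± 156 CPM at day 5 and 13.7 ± 0.594 CPM untreated (log2 fold change 6.11 ± 0.33). Gpx1 did not pass, with 926 ± 31.7 CPM at day 5 and 1079 ± 61.1 CPM untreated (edgeR adjusted p = 0.4, and 0.015 as lower with no composition scaling).

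The day 2 libraries placed these changes in time. Against day 2, 8439 genes changed by day 5 (70.7%), 4300 higher (36%) and 4139 lower (34.7%). Summed mature neutrophil genes were already high at day 2, with a large part of the sum held by the calprotectin gene S100a9. Macrophage, lysosomal and interferon-stimulated genes were then far closer to the untreated than to the day 5 level. The summed level of mature neutrophil genes was 1965 to 2026 CPM untreated, 14989.9 to 19019 CPM at day 2 and 11188 to 17244 CPM at day 5. That of macrophage genes was 435 to 495 CPM untreated, 599.7 to 634 CPM at day 2 and 13564 to 14398 CPM at day 5, that of lysosomal hydrolases 3922 to 4376 CPM untreated, 4253 to 4314 CPM at day 2 and 77660.1 to 91305 CPM at day 5, and that of interferon-stimulated genes 637 to 696 CPM untreated, 562 to 620.0 CPM at day 2 and 9272 to 10673 CPM at day 5. Of the 40 interferon-stimulated genes 40 were higher at day 5 than at day 2, as were 38 of 38 hydrolases and 19 of 20 macrophage genes. Of the 23 mature neutrophil genes 13 were higher at day 5 than at day 2 and 6 lower, so their sum does not speak for each gene. S100a9 had 36.6 ± 7.89 CPM untreated, 8577 ± 945 CPM at day 2 and 4534 ± 1215 CPM at day 5 and fell between day 2 and day 5 (log2 change from day 2 -0.92 ± 0.30), and Ngp had 5.62 ± 1.13 CPM untreated, 1935 ± 455 CPM at day 2 and 1096 ± 265 CPM at day 5. Primary granule genes were still read at day 2, and all 9 members of their list were lower at day 5 than at day 2: Mpo had 7073 ± 504 CPM untreated, 2277 ± 321 CPM at day 2 and 6.32 ± 1.76 CPM at day 5, and Elane 11.7 ± 0.141 CPM untreated, 29.4 ± 5.02 CPM at day 2 and 0.187 ± 0.111 CPM at day 5. Ribosome biogenesis genes summed to 11282 to 11661 CPM untreated, 14701 to 15889 CPM at day 2 and 2736 to 2928 CPM at day 5, so that the fall lay between day 2 and day 5, in all 40 genes. Replication genes summed to 5929 to 6222 CPM untreated, 4600.0 to 4749 CPM at day 2 and 1169 to 1233 CPM at day 5, and mitotic genes to 6670.1 to 8085 CPM untreated, 7430.3 to 7580.3 CPM at day 2 and 1570.2 to 1921 CPM at day 5. Some genes were lowest at day 2 and higher again at day 5: Csf1r had 32.1 ± 3.54 CPM untreated, 10.1 ± 1.97 CPM at day 2 and 203 ± 23.04 CPM at day 5, F13a1 457 ± 23.6 CPM untreated, 5.85 ± 1.296 CPM at day 2 and 99.99 ± 20.2 CPM at day 5 and Kit 353 ± 18.2 CPM untreated, 19.9 ± 5.56 CPM at day 2 and 38.7 ± 4.302 CPM at day 5. Lipg, endothelial lipase, peaked at day 2, with 0.0922 ± 0.0553 CPM untreated, 272 ± 48.3 CPM at day 2 and 38.2 ± 3.89 CPM at day 5, as did Slc7a11, with 24.8 ± 5.97 CPM untreated, 1076 ± 240.1 CPM at day 2 and 268 ± 41.7 CPM at day 5.

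**Figure D4:**
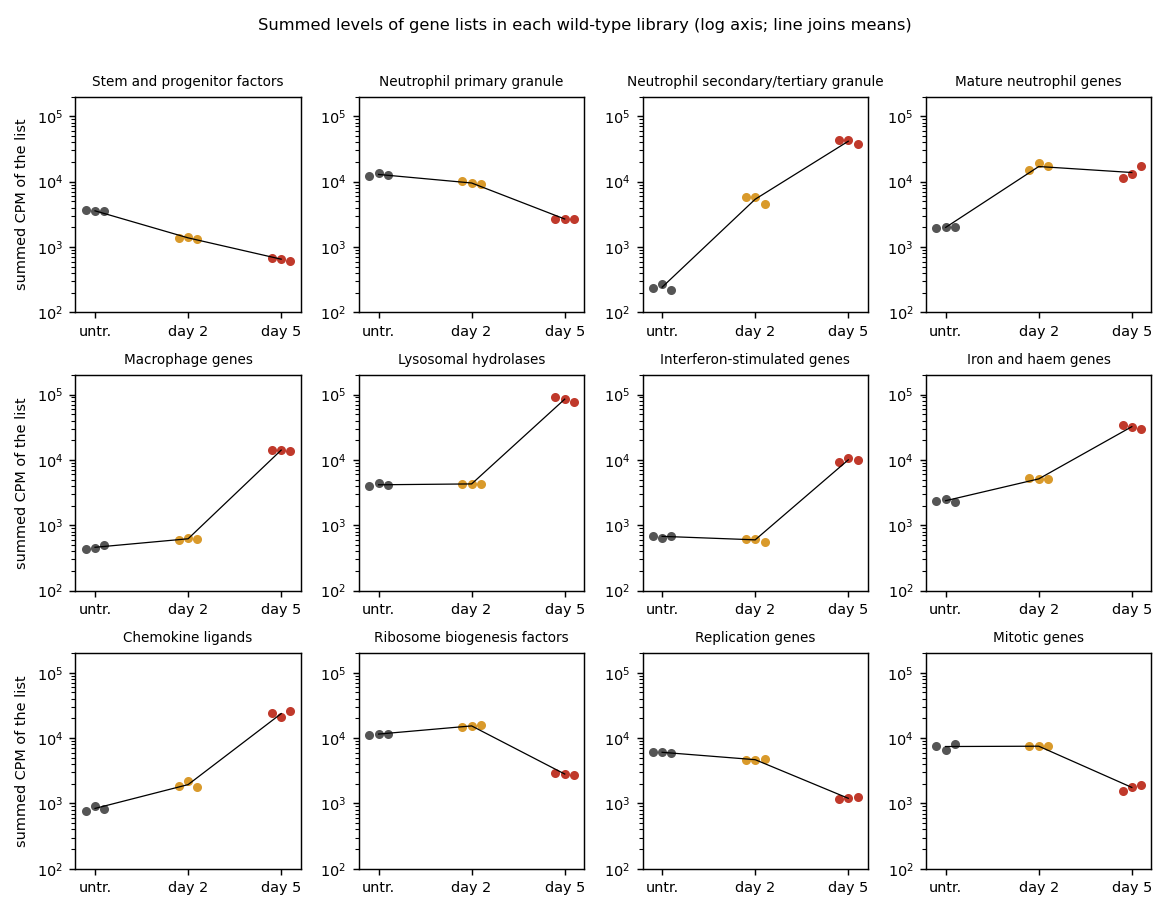
Summed CPM of 12 gene lists in each wild-type library (points, log axis) untreated, at day 2 and at day 5, with lines joining the means of 3 libraries. Macrophage, lysosomal and interferon-stimulated genes lie at day 2 far closer to the untreated than to the day 5 level, whereas ribosome biogenesis and mitotic genes stay high at day 2 and fall by day 5.

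The day 5 response was set against that of the P248L line, whose receptor chain carries a single amino acid change and which was treated in the same way. Each receptor is 1 line, so receptor and line cannot be told apart. The responses differed for 3207 genes (26.9%), 1457 with a higher value in wild-type cells (12.2%) and 1750 with a lower one (14.7%). Of 40 interferon-stimulated genes 33 had a higher log2 response in wild-type cells and 0 a lower one, and of 38 lysosomal hydrolases 29 a higher one and 0 a lower one. Of 44 mitotic genes 39 had a lower response in wild-type cells, that is, a larger fall, against 6 of 40 ribosome biogenesis genes whose response differed in either direction. Of the 17 members of the secondary and tertiary granule list 8 had a lower response in wild-type cells and 0 a higher one, and of the 9 members of the primary granule list 7 lower and 1 higher. In the 34 interferon-stimulated genes with more than 3 reads in all 4 groups, the median log2 fold change was 5.02 in wild-type and 1.40 in P248L cells, and in 36 hydrolases 2.20 in wild-type and 1.40 in P248L cells.

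Rtp4 had 205 ± 6.28 CPM at day 5 and 0.317 ± 0.0625 CPM untreated in wild-type and 3.31 ± 0.457 CPM at day 5 and 2.98 ± 0.343 CPM untreated in P248L cells (difference of responses 9.14 ± 0.31 on the log2 scale, edgeR adjusted p = 2.7e-12). Rsad2 had 318 ± 71.3 CPM at day 5 and 0.223 ± 0.124 CPM untreated in wild-type and 2.201 ± 0.319 CPM at day 5 and 0.221 ± 0.107 CPM untreated in P248L cells (difference of responses 7.16 ± 0.76 on the log2 scale, edgeR adjusted p = 2.3e-06). Elane had 0.187 ± 0.111 CPM at day 5 and 11.7 ± 0.141 CPM untreated in wild-type and 11.8 ± 1.46 CPM at day 5 and 2.78 ± 1.497 CPM untreated in P248L cells (difference of responses -8.00 ± 0.66 on the log2 scale, edgeR adjusted p = 1.1e-07), so that it fell in the wild-type line and was higher at day 5 in the P248L line (P248L edgeR adjusted p = 5.3e-05). S100a9 had 4534 ± 1215 CPM at day 5 and 36.6 ± 7.89 CPM untreated in wild-type and 17049.8 ± 3447 CPM at day 5 and 1.29 ± 0.943 CPM untreated in P248L cells (difference of responses -6.63 ± 0.50 on the log2 scale, edgeR adjusted p = 4.3e-08). Csf1r had 203 ± 23.04 CPM at day 5 and 32.1 ± 3.54 CPM untreated in wild-type and 223 ± 30.01 CPM at day 5 and 5.24 ± 0.336 CPM untreated in P248L cells (difference of responses -2.75 ± 0.22 on the log2 scale, edgeR adjusted p = 7.6e-08). Not every large response differed: for Lyz2 the difference was 0.07 ± 0.30 on the log2 scale, edgeR adjusted p = 0.89, for Psap 0.22 ± 0.23 on the log2 scale, edgeR adjusted p = 0.52, and for Gpnmb -1.61 ± 0.96 on the log2 scale, edgeR adjusted p = 0.23, and a p that misses the threshold does not show that the lines respond alike.

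**Figure D5:**
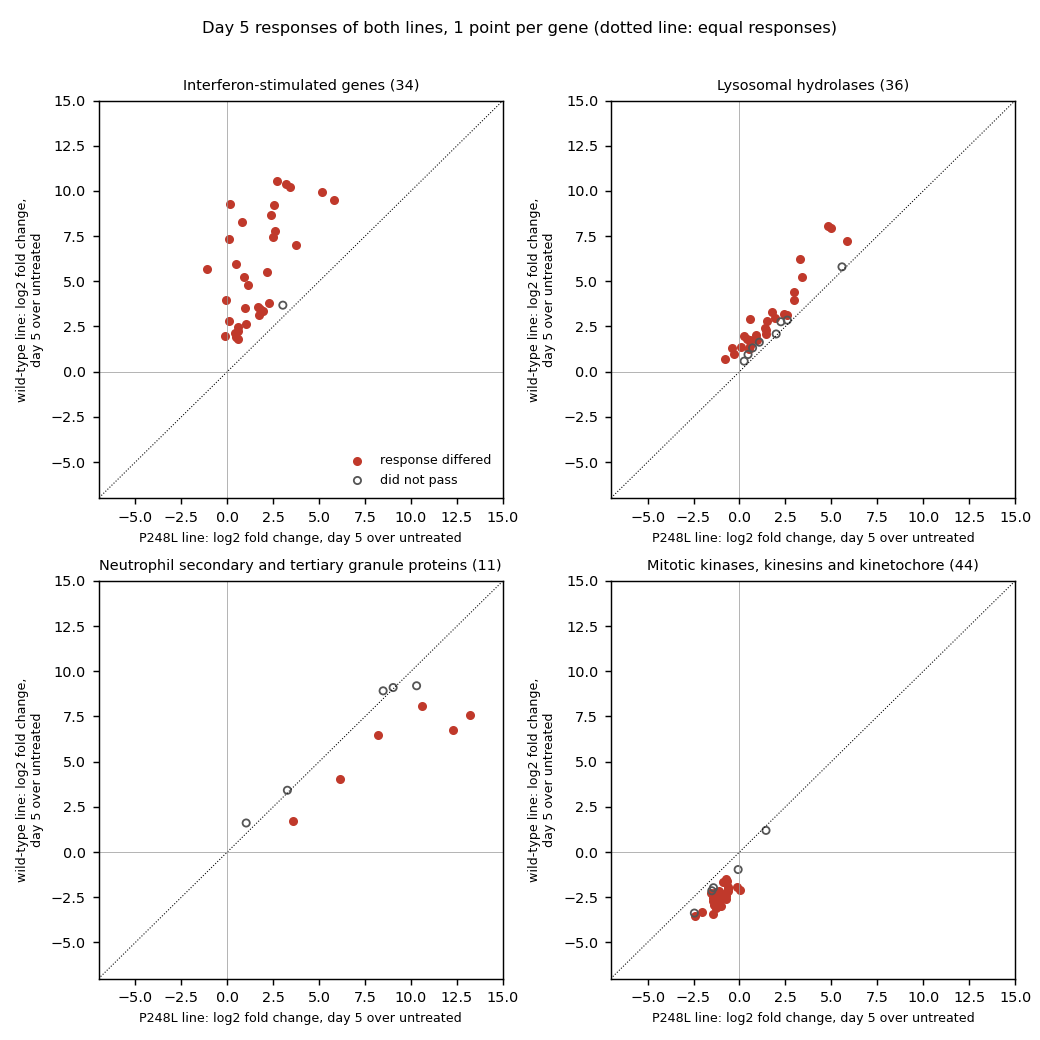
Log2 fold change of day 5 over untreated in the wild-type line (vertical axis) and in the P248L line (horizontal axis) for members of 4 lists with more than 3 reads in all 4 groups, 1 point per gene. Filled red points mark genes whose responses differed, open points those that did not pass, and the dotted line marks equal responses. Interferon-stimulated genes lie above the line and mitotic genes mostly below it.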

How the data were processed

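Total RNA was sequenced from 18 libraries, 3 in each of 6 groups, and the 6 wild-type day 5 and untreated libraries are compared here. The authors deposited counts per gene for each library, made with STAR on mm10 per the submitters' processing notes. Program versions and the annotation: not given in the sources used here. From the deposited counts, the column for the strand that held the reads was used, and the other strand held 1.17 to 2.54% as many reads. Reads assigned to no single gene were 27.9 to 38.1% and stayed out of library sizes.

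With edgeR 4.0.16 (R 4.3.3, limma 3.58.1), genes passing filterByExpr at a minimum count of 10 were scaled by TMM and fitted by quasi-likelihood over all 18 libraries, with no covariates. P-values were adjusted over 11942 genes. Simulated data with known changes in few genes were used to try the fit. For day 5 against untreated, 99 of 11574 genes were changed by 2-fold and 97 by 4-fold. At 2-fold, 83.8% of changed genes were called for day 5 against untreated, 83.8% for day 5 against day 2 and 39.2% for the difference of responses. Of all calls 4.81, 5.73 and 7.04% were false. A change as wide as the 73.1% of tested genes called here was not tested, so these shares may not apply to it. DESeq2 1.42.0, limma-voom, other scalings, filters and fits, and leaving out each library were tried as alternatives.

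Members and gene lists were chosen with earlier results of these data known. Genes named are the 15 largest rises and falls and the 15 largest gains and losses of CPM among passing genes whose libraries do not overlap, up to 6 passing and 3 other members of a list, all members of lists of cell type markers, 12 fixed genes, and the 8 largest differences of response in each direction. Of 1789 list genes 1740 matched directly, 32 by an older symbol and 17 not. Gene positions and promoter windows come from RefSeq on GRCm38.p6. Replicate numbers were not used to pair libraries in the main fit. Some genes that this rule names are not reported here.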

Additional observations from a re-analysis of the deposited data

Results flagged for a closer look

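The day 5 response differed between the wild-type and P248L lines for the 21 genes given here, by the test of the difference itself. They are those of the fixed genes and of the 8 largest differences in each direction, and other genes named in the text differed as well. Each receptor is 1 line, so receptor and line cannot be told apart. Differences are wild-type minus P248L on the log2 scale. Among the fixed genes the difference was 1.32 ± 0.48 on the log2 scale, edgeR adjusted p = 0.049 for Il3ra, 1.03 ± 0.19 on the log2 scale, edgeR adjusted p = 5.4e-04 for Csf2rb2, -2.75 ± 0.22 on the log2 scale, edgeR adjusted p = 7.6e-08 for Csf1r, -1.80 ± 0.29 on the log2 scale, edgeR adjusted p = 1.9e-04 for Csf3r and -3.91 ± 1.18 on the log2 scale, edgeR adjusted p = 0.021 for Hoxa9. Il3ra had 9.400 ± 1.41 CPM at day 5 and 8.65 ± 2.19 CPM untreated in wild-type and 2.73 ± 0.556 CPM at day 5 and 6.25 ± 2.67 CPM untreated in P248L cells. Csf3r had 62.5 ± 11.6 CPM at day 5 and 38.8 ± 3.52 CPM untreated in wild-type and 71.3 ± 19.3 CPM at day 5 and 12.7 ± 1.46 CPM untreated in P248L cells.

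Among the largest differences, the wild-type minus P248L value was positive for Rtp4 (9.14 ± 0.31 on the log2 scale, edgeR adjusted p = 2.7e-12), Ifit3 (7.85 ± 1.16 on the log2 scale, edgeR adjusted p = 7.9e-05), Mx2 (7.48 ± 0.88 on the log2 scale, edgeR adjusted p = 7.2e-06), Cmpk2 (7.24 ± 0.31 on the log2 scale, edgeR adjusted p = 1.1e-10), Rsad2 (7.16 ± 0.76 on the log2 scale, edgeR adjusted p = 2.3e-06) and Lama5 (7.18 ± 1.13 on the log2 scale, edgeR adjusted p = 1.3e-04), a laminin chain. It was negative for Elane (-8.00 ± 0.66 on the log2 scale, edgeR adjusted p = 1.1e-07), which fell in wild-type and rose in P248L cells, and S100a9 (-6.63 ± 0.50 on the log2 scale, edgeR adjusted p = 4.3e-08).

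For the others a group held 3 reads or fewer, so no fitted difference is given. Rragd, a Rag GTPase, had 54.7 CPM at day 5 and 0.0609 CPM untreated in wild-type and 0 CPM at day 5 and 0.137 CPM untreated in P248L cells (edgeR adjusted p = 7.3e-06), and Plekhg1 44.5 CPM at day 5 and 0.0166 CPM untreated in wild-type and 0.289 CPM at day 5 and 0.167 CPM untreated in P248L cells (edgeR adjusted p = 5.21e-08). Serpinb9e, which has close copies and is thus uncertain, had 0.0416 CPM at day 5 and 0.0497 CPM untreated in wild-type and 89.3 CPM at day 5 and 0 CPM untreated in P248L cells (edgeR adjusted p = 0.0028). Chi3l3 (now Chil3), a chitinase-like protein with close copies, had 0.79 CPM at day 5 and 0.35 CPM untreated in wild-type and 28.5 CPM at day 5 and 0.0109 CPM untreated in P248L cells (edgeR adjusted p = 6.01e-07). Hpgd had 0.582 CPM at day 5 and 44.2 CPM untreated in wild-type and 0.0309 CPM at day 5 and 0 CPM untreated in P248L cells (edgeR adjusted p = 0.0056), and Nrg2 0 CPM at day 5 and 12.7 CPM untreated in wild-type and 0.0573 CPM at day 5 and 0.845 CPM untreated in P248L cells (edgeR adjusted p = 0.00122). Nat8l, which makes N-acetylaspartate, had 30.4 CPM at day 5 and 4.698 CPM untreated in wild-type and 4.83 CPM at day 5 and 0 CPM untreated in P248L cells (edgeR adjusted p = 2.53e-05), and Ptprj, a receptor phosphatase, 97.01 CPM at day 5 and 3.27 CPM untreated in wild-type and 19.4 CPM at day 5 and 0 CPM untreated in P248L cells (edgeR adjusted p = 2.32e-05).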

How the results depend on the processing

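The count of changed genes (8729) lay between 7668 and 9748 under every alternative tried but one, which asks for changes beyond 2-fold (glmTreat) and left 4449 genes, 2481 higher and 1968 lower. With no composition scaling 34.4% of changed genes rose, in place of 48.9%. Under that scaling Stat5b (-0.38), Max (-0.33), Pmaip1 (-0.37) and Ldha (-0.41), which did not pass in the main fit, turned negative and passed as lower (edgeR adjusted p = 0.0028, 0.02, 0.039 and 0.032). With DESeq2, Stat5b passed as higher (log2 fold change 0.18, DESeq2 adjusted p = 0.0447). Leaving out 1 library at a time gave 8240 to 8394 genes against untreated cells, 7882 to 8046 against day 2 and 2493 to 4019 whose responses differed. With a replicate block, fitted only on the libraries of each comparison, the counts were 9292, 9404 and 3055. The 6 compared libraries without a block gave 9486 genes against untreated cells, the like value for 9292. Same-numbered wild-type day 5 and untreated libraries did not deviate together (r = -0.064, -0.13 and 0.011). With 3 libraries in a group this cannot exclude a pairing by number. The rise of Chi3l3 in wild-type cells was lost in 5 of 6 fits without 1 library, with limma-voom (adjusted p = 0.147), with upper-quartile factors (edgeR adjusted p = 0.055) and with no composition scaling (edgeR adjusted p = 0.196). Pfn1, Tgfb1 and Cfl1 passed as higher with the 6 compared libraries alone (edgeR adjusted p = 0.00563, 0.0207 and 0.0176), and Rplp1, Gpx1 and Itgb3 as lower (edgeR adjusted p = 0.0141, 0.049 and 0.0305). With the 9 wild-type libraries Mtor, Pecam1, Pkm2, Socs2 and Gpx1 also passed as lower (edgeR adjusted p = 0.0239, 0.0481, 0.0367, 0.026 and 0.0303). Siglec5 passed as higher with DESeq2 (DESeq2 adjusted p = 0.0492). After seeing the data, leaving out P248L untreated library 1 and P248L day 2 library 3, which stand apart, gave 9748, 9435 and 4075 genes, and leaving out the pre-rRNA gene Rn45s gave 8730. Depth limits genes with few reads in 1 group, for which only bounds or intervals are given.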
